A study of Mus musculus with 54 samples.

Results

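The subject is a set of 41 interferon-induced genes among the 23154 genes of a single-cell count table of mouse blood-forming cells. The genes were chosen by name, with earlier results of these data known. The condition was that each had a count in at least 1% of the annotated cells, which all 41 met. Medians over the members and counts of their directions therefore describe this list and are not independent support. They were Irf7, Irf9 and Stat2 (transcription factors of the response), Isg15 and Usp18 (a ubiquitin-like modifier and the protease that removes it), Ddx58, Ifih1, Dhx58 and Zbp1 (sensors of nucleic acids), Oas1a, Oas2, Oas3, Oasl1 and Oasl2 (the oligoadenylate synthetase family), and Ifit1, Ifit2, Ifit3 and Ifit1bl1 (RNA-binding tetratricopeptide proteins). The others were Isg20, Mx1, Mx2, Rsad2, Bst2, Eif2ak2, Adar and Samd9l (antiviral effectors), Gbp2, Gbp3, Gbp7, Igtp, Irgm1 and Iigp1 (interferon-induced GTPases), Parp9, Parp14 and Dtx3l (ADP-ribosylation and ubiquitin), and Rtp4, Ifi44, Ifi35, Xaf1, Trim30a and Sp100. Mx2 is annotated as a polymorphic pseudogene. Together the 41 genes held 0.1695% of all counts in annotated cells.

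The study followed transplanted haematopoietic stem cells of C57BL/6 mice, labelled 8 to 10 weeks old, by single-cell sequencing of the 3′ ends of mRNA with a modified Smart-seq2 protocol. Cells collected on days 1, 3, 5 and 7 after transplantation were set beside sorted populations of steady state mice, from bone marrow, spleen or both. The table held 2879 cells, of which 2301 had an annotation: 1270 steady state cells of 28 sorted populations and 1031 transplanted cells, in 54 libraries. The conditioning of the recipients, the dose and sort of the donor cells and the animals behind each library are not given in the sources used here, and all transplanted cells had the annotation GFPP.

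The steady state groups were iHSC (LT_HSC, ESLAM, ESLAMSK, Fraction I and Fraction III, 305 cells in 12 libraries), iMPP (ST_HSC, LMPP, MPP1, MPP2, MPP3, MPP4, Fraction II, HPC2 and HPC3, 508 cells in 17), committed progenitors (CMP, GMP, MEP and CLP, 95 cells in 4), myeloid cells (granulocytes, monocytes and macrophages, 106 cells in 3), erythroblasts and megakaryocytes (EryA, EryB and MK, 89 cells in 5) and lymphocytes (CD4T, CD8T, B and NK cells, 167 cells in 4). The collection days held 61 cells in 3 libraries on day 1, 125 in 3 on day 3, 336 in 7 on day 5 and 389 in 10 on day 7. A further 120 transplanted cells came from 3 libraries that pooled days, and entered no comparison by day. Each annotated cell also carried a type predicted by the submitters (tHSC1, tMPP1 and so on).

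Interferons are secreted proteins that bind receptors on the cell surface: type I interferons bind Ifnar1 with Ifnar2, and interferon gamma binds Ifngr1 with Ifngr2. The receptors act through Janus kinases, and for type I interferon the signal ends in a complex that holds Irf9 and binds a repeated GAAA element upstream of its target genes. In blood-forming tissue interferons are known to act on stem cells directly, and a basal level of interferon-induced genes is known in resting stem cells. Irf7 drives further production of type I interferon, Bst2 tethers enveloped virus particles at the cell surface, and Rtp4 and Isg15 are among the usual markers of the response.

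The promoters are shown first, because the shared element is what many of these genes have in common in sequence. Of the 41 genes, 31 had an entry in a RefSeq promoter table (GRCm38.p6) that spans 250 bases before to 50 after a start site. The element searched was 2 copies of GAAA in the same orientation, 2 bases apart, on both strands. It was found in a promoter of 18 of the 31 genes (58.1%), beside 4.0% of all 27025 genes in the table. A shorter form without the last base, which overlaps the first, was found in 21 (67.7%) against 9.8%. All 5 GTPase genes with an entry and 3 of the 4 Ifit genes held the longer form. The 160 bases before the start site are printed 5′ to 3′ on the gene's strand for Isg15, Ifit3, Bst2, Irf7 and Oasl2, the genes named in every comparison, with matches on either strand in capitals and everything else in lower case.

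Isg15 chr4:156200819-156200978 (minus strand): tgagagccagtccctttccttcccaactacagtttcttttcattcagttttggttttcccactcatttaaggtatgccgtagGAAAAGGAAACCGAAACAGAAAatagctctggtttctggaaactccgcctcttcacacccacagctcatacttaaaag
Ifit3 chr19:34583369-34583528 (plus strand): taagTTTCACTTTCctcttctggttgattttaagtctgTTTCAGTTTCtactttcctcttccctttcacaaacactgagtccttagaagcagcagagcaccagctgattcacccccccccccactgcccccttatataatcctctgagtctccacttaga
Bst2 chr8:71537473-71537632 (minus strand): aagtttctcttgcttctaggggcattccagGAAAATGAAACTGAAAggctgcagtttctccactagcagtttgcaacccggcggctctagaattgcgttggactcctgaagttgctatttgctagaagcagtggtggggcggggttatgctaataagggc
Irf7 chr7:141266425-141266584 (minus strand): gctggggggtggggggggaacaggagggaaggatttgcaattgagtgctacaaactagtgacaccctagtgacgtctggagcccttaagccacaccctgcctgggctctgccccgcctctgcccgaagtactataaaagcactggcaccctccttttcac
Oasl2 chr5:114896774-114896933 (plus strand): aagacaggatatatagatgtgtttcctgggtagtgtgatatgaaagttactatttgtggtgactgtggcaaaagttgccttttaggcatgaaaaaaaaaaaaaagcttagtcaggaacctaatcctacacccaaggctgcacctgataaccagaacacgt

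The window of Isg15 held 3 overlapping matches and those of Ifit3 and Bst2 held 2 each. The windows of Irf7 and Oasl2 held none, which says only that these letters are not in them. In the GRCm38 annotation the genes lie at chr4:156199424-156200818, minus strand (Isg15), chr19:34583531-34588731, plus strand (Ifit3), chr8:71534255-71537456, minus strand (Bst2), chr7:141262706-141266481, minus strand (Irf7) and chr5:114896936-114912234, plus strand (Oasl2), and all are protein coding. RefSeq's start site for Irf7 differs from the start in that annotation, and 57 of the bases printed for it lie inside the annotated gene. A match describes the letters and was not tested as a binding site.

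Levels are given as CPM, the counts of a gene per 1000000 counts of all genes, after the cells that share a library and a group were summed. They are not divided by transcript length, because the libraries were made from 3′ ends. The library is the replicate throughout, and p-values measure only the spread between libraries, which may be technical. Cells held a median of 203971 counts (20013 to 1943315), and annotated libraries 745742 to 30433157. In a sum over many cells, fewer cells that carry a transcript and less of it per cell cannot be told apart. The libraries of days 1 and 3 carry the labels L79 to L89, those of days 5 and 7 L47 to L72 apart from L86 (day 5) and L78 (day 7), so the day and the library number cannot be told apart. The tissue label differed as well. On day 5, 4 libraries were labelled spleen, 2 bone marrow and spleen and 1 bone marrow. Day 7 had 9 labelled bone marrow and spleen and 1 bone marrow, and day 1 had 2 and 1. All 3 of day 3 were labelled with both tissues. In iHSC 6 were labelled bone marrow and 6 both, in iMPP 12 and 5. Day and tissue cannot be fully told apart either.

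Some libraries stood apart or went against their labels. L87, the day 1 library with the fewest counts (745742 from 13 cells), held 137200 CPM of 6 neutrophil marker genes and no count of 6 stem cell markers, where the other day 1 libraries held 7942 (L83) and 2375 (L84) CPM of the neutrophil markers. Calls and shares of cells of day 1 are therefore also given without it. L66 of day 5 (8 cells) held 17600 CPM of the neutrophil and 1439 CPM of 10 tissue macrophage markers, and 1 of its cells held 70.4% of its counts of the interferon-induced genes. The libraries of erythroblasts and megakaryocytes held 48730 to 219000 CPM of the neutrophil markers, beside 61670 to 96690 in myeloid cells and 1.08 to 26530 in iHSC. In those libraries 4 globin genes (Hbb-bt, Hbb-bs, Hba-a1 and Hba-a2) had no count. Stem cell markers were present in every iHSC library (466 to 1350 CPM), and L4 and L49 carried labels that name other populations than the annotation.

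In steady state cells the summed level of the 41 genes had its highest means over libraries in erythroblasts and macrophages and its lowest in MPP3 and GMP. It was 3821 (L4) and 7481 (L42) CPM in EryB and 1978 (L16) and 3742 (L42) CPM in EryA, 2 stages of erythroblasts. Macrophages, with 1 library, had 3646 (L12) CPM. MPP3 had 518 (L39) and 557 (L52) CPM. GMP and MEP, with 1 library each, had 629 (L17) CPM and 778 (L15) CPM. The libraries of iHSC ranged from 1165 to 2747 CPM (median 2124, n = 12) and those of iMPP from 518 to 3041 CPM (median 1136, n = 17). These groups overlapped over most of their range. Lymphocytes gave 1168 (L2), 1192 (L3), 2242 (L53) and 1661 (L54) CPM. Committed progenitors gave 778 (L15), 826 (L17), 1745 (L28) and 2449 (L43) CPM. Myeloid cells gave 1421 (L5), 3646 (L12) and 1958 (L43) CPM. Erythroblasts and megakaryocytes together gave 3821 (L4), 1978 (L16), 1837 (L28), 4651 (L42) and 1044 (L55) CPM. By their medians the 6 groups ran upward from iMPP through committed progenitors, lymphocytes, myeloid cells and the erythroblast and megakaryocyte group to iHSC, and the ranges of neighbours in this order overlapped. Between the single populations EryB lay above EryA without overlap, with 2 libraries each.

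**Figure D1:**
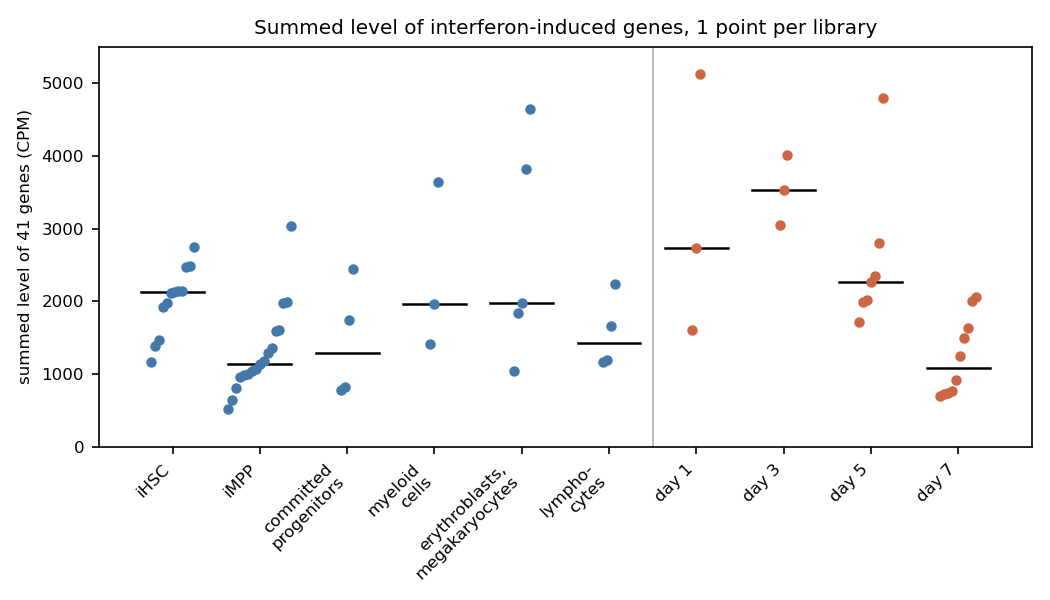
Summed level of the 41 interferon-induced genes (y axis, CPM) in each library, for the 6 steady state groups (blue) and the 4 collection days (orange); each point is a library and the black line the median. The day 3 libraries lie between 3046 and 4008 CPM, above all iHSC libraries, and the day 7 libraries between 693 and 2063.

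Single genes had different patterns over the sorted populations. Isg20, an exonuclease that degrades RNA, had the highest mean over iHSC libraries (138 CPM). It was followed there by Gbp7 (130.5 CPM), Rtp4 (113), Ifi35 (105), Bst2 (104) and Irf9 (95.4). Over the means of the 28 populations Isg20 also came first (174 CPM), before Rtp4 (94.4), Ifi35 (94.1), Bst2 (94), Xaf1 (77) and Irf9 (75.3). By the mean over libraries EryB had the highest Isg20, at 1091 (L4) and 2670 (L42) CPM, beside 602 (L16) and 1400 (L42) CPM in EryA. EryB also had the highest mean of Rsad2, at 238 (L4) and 2154 (L42) CPM, beside 114 (L16) and 493 (L42) CPM in EryA. For both genes L42 of EryA lay above L4 of EryB. Macrophages, with 1 library, had the highest mean of Irf7, Zbp1, Oas1a, Oasl1, Oasl2, Ifit2, Ifit3, Mx1, Mx2, Bst2, Parp14, Rtp4 and Xaf1. Among them were Irf7 at 295 CPM, Rtp4 at 265, Oasl2 at 207 and Ifit3 at 132. LT_HSC had the highest mean of Eif2ak2, Gbp7 and Ifi44, with Ifi44 at 15.6 (L14) and 223 (L74) CPM in its 2 libraries. Bst2 had a count in 86.4% of annotated cells, Ifit1bl1 in 6.69% and the other genes in between.

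**Figure D2:**
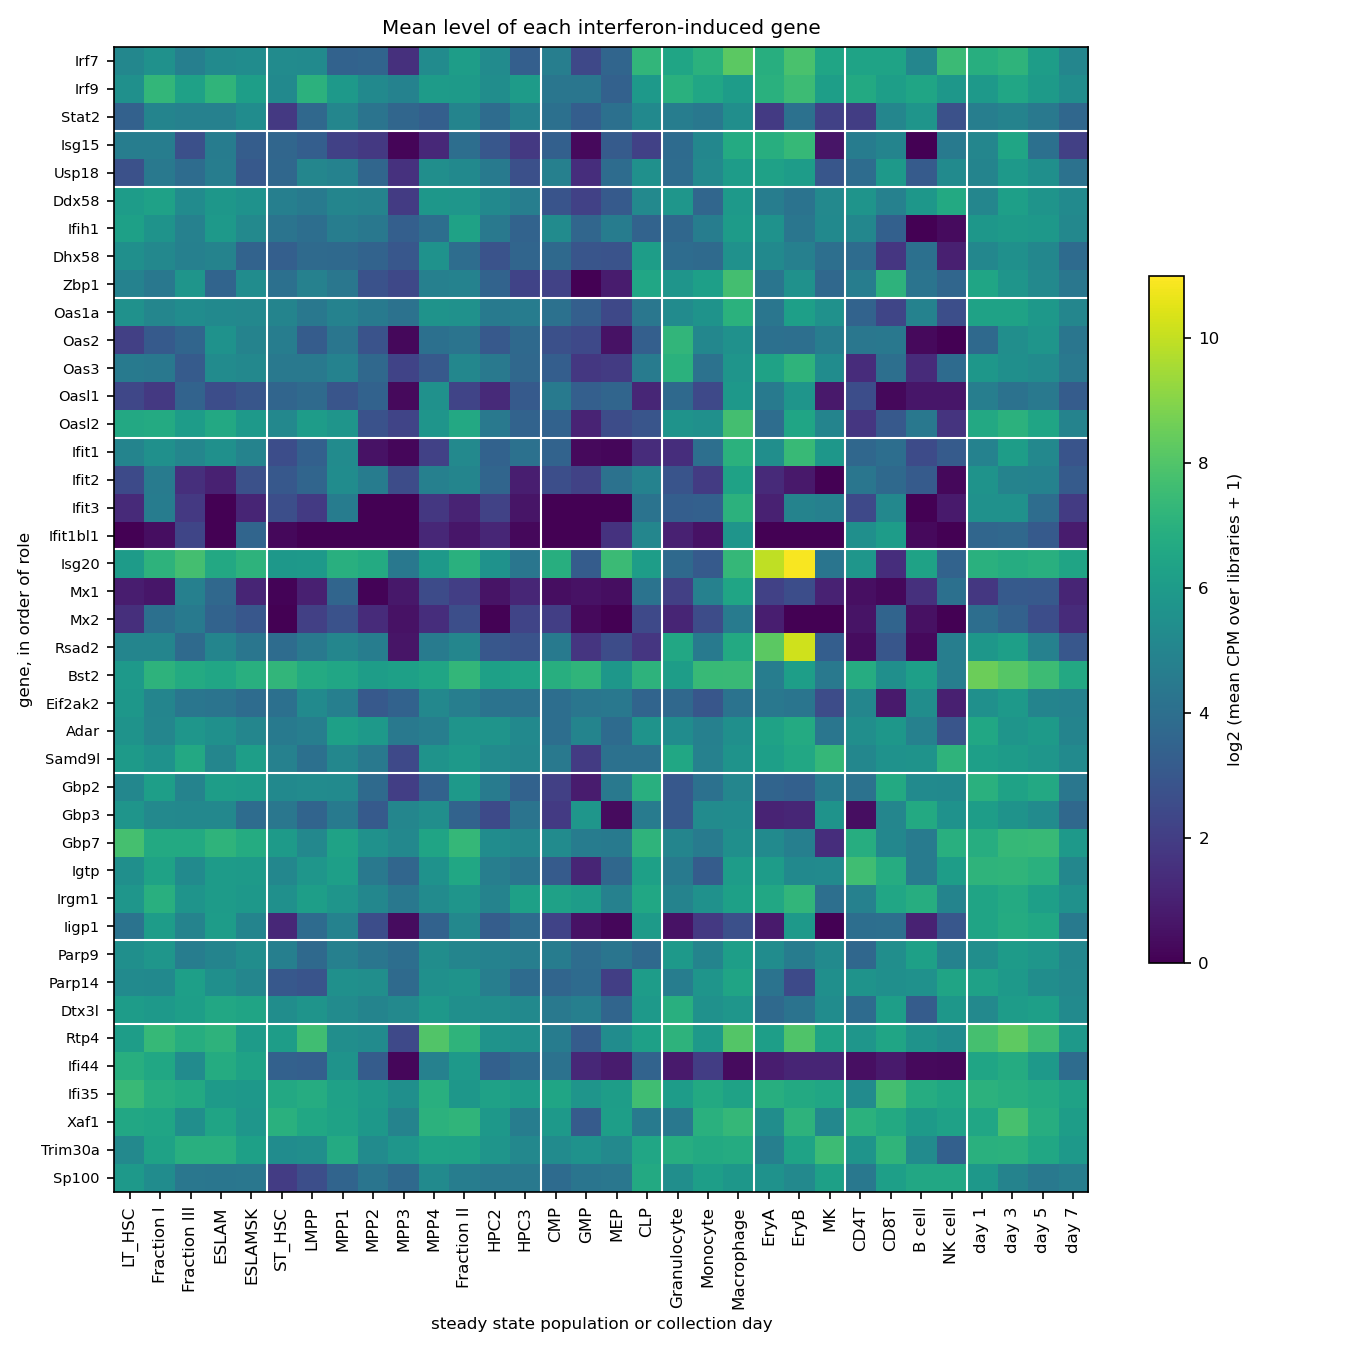
Mean level of each interferon-induced gene (rows, grouped by role) in the 28 sorted populations and on the 4 collection days (columns); colour gives log2 of the mean CPM over libraries plus 1. Isg20 (1880 CPM) and Rsad2 (1196 CPM) in EryB stand out, and Ifi44 is at most 3.04 CPM in the 10 mature populations.

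Between the stem cell and multipotent progenitor gates, 5 of the 39 interferon-induced genes tested were lower in iMPP and none was higher. The test was edgeR's quasi-likelihood test with a Benjamini-Hochberg adjusted p under 0.05, as in every comparison that follows. Each share of all genes called is that of this test at this threshold. No such share is given for counts by unadjusted p, DESeq2 or limma voom, which cannot be set against it. Over all genes tested 4.72% were called lower. Log2 changes of the 39 members ran from -2.59 to 1.27 (median -0.69, and -0.12 over all genes tested). Ifi44 was at 0 to 223 CPM (median 76.2, n = 12) in iHSC. iMPP held 0 to 70.8 CPM (median 11.1, n = 17). For Ifi44 the log2 change was -2.13 ± 0.55 (SE, adjusted p = 0.00982). The ranges overlapped at the low end. Gbp7 is a GTPase that interferon gamma induces. Gbp7 was at 48.3 to 317 CPM (median 111, n = 12) in iHSC. iMPP held 6.43 to 155 CPM (median 43, n = 17). The Gbp7 change was -1.19 ± 0.32 on the log2 scale (SE, adjusted p = 0.0128). Of the 17 iMPP libraries, 9 lay below every iHSC library. Oasl2 was at 34.5 to 154 CPM (median 82.7, n = 12) in iHSC. iMPP held 3.58 to 104 CPM (median 24, n = 17). Oasl2 had a log2 change of -1.21 ± 0.39 (SE, adjusted p = 0.0427). Here 10 of the 17 lay below every iHSC library. The others called were Ifih1, a sensor of double-stranded RNA, and Isg20. Ifih1 was at 0 to 88 CPM (median 51.1, n = 12) in iHSC. iMPP held 5.92 to 60.1 CPM (median 15.1, n = 17). For Ifih1 the log2 change was -1.37 ± 0.41 (SE, adjusted p = 0.0251). Both groups overlapped. Isg20 was at 3.86 to 425 CPM (median 92.6, n = 12) in iHSC. iMPP held 10 to 123 CPM (median 50.8, n = 17). The Isg20 change was -1.25 ± 0.40 on the log2 scale (SE, adjusted p = 0.0403). These ranges overlapped as well. Isg15 (log2 change -1.6 ± 0.70 SE, adjusted p = 0.155) and Irf7 (log2 change -0.50 ± 0.46 SE, adjusted p = 0.567) missed the threshold. Ifit3 (log2 change -0.52 ± 1.13 SE, adjusted p = 0.828) and Bst2 (log2 change -0.10 ± 0.31 SE, adjusted p = 0.89) were not called. The calls of Ifi44 and Gbp7 held in every fit run. Fits restricted to some cells or tissue labels were run only for the days set against iHSC and against each other. The Ifih1 call was lost without L14 or L50 (adjusted p 0.0562 to 0.0575) and with cells thinned to 20000 counts (adjusted p 0.0506). The Isg20 call was lost without L4, L15, L23, L26, L28, L38, L39, L40, L42, L50, L52, L54, L76 or L81 (adjusted p 0.05003 to 0.142) and with at least 10 cells a sum (adjusted p 0.0824). The Oasl2 call was lost without L4, L14, L15, L23, L26, L28, L38, L39, L40, L50, L51, L52, L54, L73, L76 or L81 (adjusted p 0.0548 to 0.0807) and with cells thinned to 20000 counts (adjusted p 0.108).

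The committed and mature groups did not share one direction. Irf7 was higher and Ifi44 lower than in iHSC in myeloid cells, lymphocytes and the erythroblast and megakaryocyte group. Oasl2 was lower in committed progenitors and lymphocytes. These comparisons share the iHSC libraries. Irf7 was at 0 to 88.2 CPM (median 36.4, n = 12) in iHSC. Myeloid cells held 84.1 (L5), 295 (L12) and 144 (L43) CPM. Lymphocytes held 63.8 (L2), 132 (L3), 100.1 (L53) and 74.2 (L54) CPM. In lymphocytes 2 of the 4 libraries lay above the iHSC range. The log2 change of Irf7 was 2.8 ± 0.70 SE, adjusted p = 0.00473 in myeloid cells. It was 1.87 ± 0.66 SE, adjusted p = 0.0467 in lymphocytes. Ifi44 is a cytoplasmic protein of little known function. Ifi44 was at 3.68 (L5), 0.24 (L12) and 0.563 (L43) CPM in myeloid cells. Lymphocytes held 0 (L2), 0 (L3), 1.08 (L53) and 0.39 (L54) CPM. Its log2 change was -5.19 ± 1.48 SE, adjusted p = 0.0145 in myeloid cells and -7.3 ± 1.47 SE, adjusted p = 0.00055 in lymphocytes. With counts this near 0 the size of the fitted change depends on the prior count. Oasl2 was at 4.95 (L15), 6.21 (L17), 6.08 (L28) and 6.76 (L43) CPM in committed progenitors. Lymphocytes held 4.35 (L2), 6.39 (L3), 5.56 (L53) and 16.4 (L54) CPM. All of these values lay below every iHSC library. Oasl2 changed by -3.61 ± 0.78 SE, adjusted p = 0.00276 on the log2 scale in committed progenitors and by -2.92 ± 0.74 SE, adjusted p = 0.0056 in lymphocytes.

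In myeloid cells 1 member (Irf7) was higher and 1 (Ifi44) lower, beside 7.41% and 4.34% of all genes. In lymphocytes 1 was higher and 2 were lower, beside 6.82% and 8.4%. In committed progenitors Oasl2 was the 1 member called, beside 1.82% of all genes called lower. In the limma voom fit with a library block, which allows for the libraries that hold cells of 2 groups, 5 members were called in committed progenitors, 7 in myeloid cells and 5 in lymphocytes. The shares of all genes called in that fit are not given. The median log2 change of the members was -0.27 in committed progenitors, 0.82 in myeloid cells and 0.22 in lymphocytes. Over all genes tested it was -0.06, -0.33 and -0.19. The calls of Oasl2 in committed progenitors and of Oasl2 and Ifi44 in lymphocytes held in every fit run. In myeloid cells the call of Irf7 was lost without L12 (adjusted p 0.197). There that of Ifi44 was lost without L12 or L43 (adjusted p 0.0821 to 0.0963) and in the limma voom fit with a library block (adjusted p 0.0837). In lymphocytes the call of Irf7 was lost without L1, L2, L3, L4, L14, L16, L28, L42, L49, L51, L52, L53, L54, L73, L74 or L76 (adjusted p 0.05047 to 0.147) and with DESeq2, with RLE normalization, without the filter and with cells thinned to 20000 counts (adjusted p 0.0527 to 0.0799). In committed progenitors, Ifi44 (log2 change -3.23 ± 1.14 SE, adjusted p = 0.0773) and Ifit1 (log2 change -3.75 ± 1.47 SE, adjusted p = 0.114) did not pass. Samd9l (log2 change -1.81 ± 0.72 SE, adjusted p = 0.119) and Irf7 (log2 change 1.23 ± 0.68 SE, adjusted p = 0.277) missed the threshold. Isg15 (log2 change -1.43 ± 1.18 SE, adjusted p = 0.514) and Ifit3 (log2 change 0.45 ± 1.73 SE, adjusted p = 0.923) were not called. Bst2 (log2 change 0.34 ± 0.50 SE, adjusted p = 0.758) did not pass. In myeloid cells, Zbp1 (log2 change 2.56 ± 0.95 SE, adjusted p = 0.0681) and Usp18 (log2 change 1.97 ± 0.74 SE, adjusted p = 0.0718) missed the threshold. Isg15 (log2 change 2.19 ± 1.06 SE, adjusted p = 0.171) and Ifit3 (log2 change 3.53 ± 1.69 SE, adjusted p = 0.164) were not called. Bst2 (log2 change 1.07 ± 0.53 SE, adjusted p = 0.18) and Oasl2 (log2 change 0.82 ± 0.65 SE, adjusted p = 0.428) did not pass. Zbp1 senses Z-form nucleic acid. In lymphocytes, Sp100 (log2 change 1.56 ± 0.61 SE, adjusted p = 0.0698) and Isg15 (log2 change 0.80 ± 1.03 SE, adjusted p = 0.651) missed the threshold. Ifit3 (log2 change 1.16 ± 1.66 SE, adjusted p = 0.691) and Bst2 (log2 change -0.10 ± 0.51 SE, adjusted p = 0.927) were not called.

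The erythroblasts and megakaryocytes held 8 members above and 2 below iHSC, where 13.7% of all genes tested were called higher and 10.1% lower. Over the 41 members the median log2 change was 0.74 (range -7.58 to 4.13), beside -0.22 over all genes. Isg20 was at 1091 (L4), 602 (L16), 24.2 (L28), 1709 (L42) and 12.5 (L55) CPM in this group. iHSC held 3.86 to 425 CPM (median 92.6, n = 12). Isg20 had a log2 change of 3.07 ± 0.66 (SE, adjusted p = 0.000581). Rsad2 makes a nucleotide that ends viral RNA chains. Rsad2 was at 238 (L4), 114 (L16), 14.7 (L28), 896 (L42) and 2.77 (L55) CPM in this group. iHSC held 0 to 61.2 CPM (median 21.9, n = 12). For Rsad2 the log2 change was 4.13 ± 0.88 (SE, adjusted p = 0.000499). For both genes the 3 libraries with erythroblasts (L4, L16 and L42) lay above every iHSC library and the other 2 (L28 and L55) did not. Isg15 was at 203 (L4), 70.3 (L16), 1.05 (L28), 158 (L42) and 0 (L55) CPM in these libraries. The Isg15 change was 3.16 ± 0.93 on the log2 scale (SE, adjusted p = 0.0112). Usp18 was at 79.2 (L4), 52.6 (L16), 2.1 (L28), 91.5 (L42) and 11.1 (L55) CPM in them. Usp18 had a log2 change of 2.42 ± 0.64 (SE, adjusted p = 0.00457). Both were high in the same 3 libraries. Irf7 was at 248 (L4), 108 (L16), 167 (L28), 148 (L42) and 6.93 (L55) CPM in these libraries. For Irf7 the log2 change was 2.75 ± 0.62 (SE, adjusted p = 0.000988). Oas3 was at 169 (L4), 55.3 (L16), 77.9 (L28), 105 (L42) and 2.77 (L55) CPM in them. The Oas3 change was 2.96 ± 0.70 on the log2 scale (SE, adjusted p = 0.00143). The lowest Irf7 value was that of L55, and the 4 others lay above every iHSC library. Trim30a had a log2 change of 1.52 ± 0.48 (SE, adjusted p = 0.0182). For Samd9l the log2 change was 1.71 ± 0.56 (SE, adjusted p = 0.0226). Both were highest in L28, at 352 and 313 CPM.

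The 2 genes lower in the erythroblasts and megakaryocytes were Ifi44 and Gbp7. Ifi44 was at 0.564 (L4), 0 (L16), 1.05 (L28), 1.74 (L42) and 1.39 (L55) CPM in these libraries. The Ifi44 change was -5.78 ± 1.26 on the log2 scale (SE, adjusted p = 0.000627). Gbp7 was at 42 (L4), 32.2 (L16), 2.1 (L28), 35.3 (L42) and 1.39 (L55) CPM in them. Gbp7 had a log2 change of -1.72 ± 0.59 (SE, adjusted p = 0.0295). Every Gbp7 value lay below the iHSC range. Ifit3 (log2 change 1.52 ± 1.57 SE, adjusted p = 0.491) and Bst2 (log2 change -0.60 ± 0.49 SE, adjusted p = 0.372) did not pass. Oasl2 (log2 change -0.37 ± 0.58 SE, adjusted p = 0.663) missed the threshold. Neutrophil markers moved with this group, at 193600 (L4), 219000 (L16), 218600 (L28), 81050 (L42) and 48730 (L55) CPM, and their part in the result was not tested. The calls of Rsad2, Isg20, Ifi44, Irf7 and Oas3 held in every fit run. The Usp18 call was lost in the limma voom fit with a library block (adjusted p 0.0532). The Isg15 call was lost without L4 (adjusted p 0.101) and in the limma voom fit with a library block (adjusted p 0.113). The Trim30a call was lost without L4 or L28 (adjusted p 0.119 to 0.726) and with at least 10 cells a sum (adjusted p 0.532). The Samd9l call was lost without L4, L15 or L28 (adjusted p 0.0631 to 0.537) and with at least 10 cells a sum and in the limma voom fit with a library block (adjusted p 0.155 to 0.242). The Gbp7 call was lost without L28, L55 or L74 (adjusted p 0.052 to 0.062) and with at least 10 cells a sum and in the limma voom fit with a library block (adjusted p 0.0539 to 0.124). In the limma voom fit with a library block the Trim30a change turned to -0.14 on the log2 scale (adjusted p = 0.913).

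After transplantation the summed level of the 41 genes was high on day 3 and lower on day 7, and varied most between libraries on day 1. It was 2732 (L83), 5125 (L84) and 1600 (L87) CPM on day 1 and 4008 (L79), 3531 (L85) and 3046 (L89) CPM on day 3. It was 1719 to 4794 CPM (median 2265, n = 7) on day 5 and 693 to 2063 CPM (median 1082, n = 10) on day 7. All 3 day 3 libraries lay above every iHSC and every day 7 library. The day 1 library L83 lay inside the iHSC range and so did L87. On day 5, L86 (4794 CPM) stood above the 6 other libraries, which ended at 2802. The mean was 3528 CPM ± 481 (SD, n = 3) on day 3 and 1228 CPM ± 540 (SD, n = 10) on day 7. It was 2014 CPM ± 472 (SD, n = 12) in iHSC and 1305 CPM ± 607 (SD, n = 17) in iMPP. Tissue macrophage markers were also higher in the early libraries than in iHSC. They were at 971 (L83), 852 (L84) and 249 (L87) CPM on day 1 and 670.4 (L79), 217 (L85) and 223 (L89) on day 3. They were at 1.2 to 110.2 CPM in iHSC and 9.35 to 705 on day 7, so the early libraries overlapped those of day 7. L66 of day 5 held more of these markers than any early library, as given above. Calls that were lost when cells high in these markers were left out are named with each gene. The part of the markers in the levels was not otherwise tested.

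**Figure D3:**
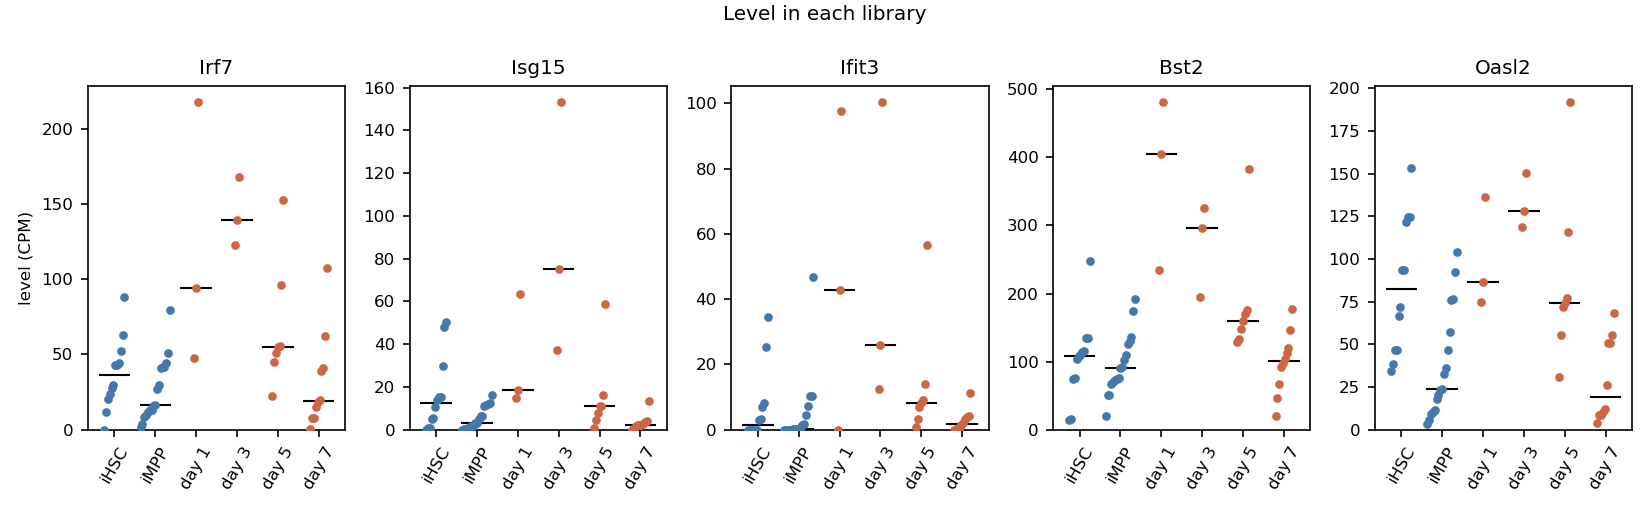
Level (y axis, CPM) of Irf7, Isg15, Ifit3, Bst2 and Oasl2 in each library of iHSC and iMPP (blue) and of the 4 collection days (orange); each point is a library and the black line the median. Bst2 lies between 235 and 482 CPM on day 1, above all iMPP libraries, and Isg15 is at or under 13.3 CPM on day 7.

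Against iHSC, edgeR called 1 member (Bst2) on day 1, 0 on days 3 and 5 and 7 on day 7, all 7 lower. The limma voom fit with a library block called 1, 8, 5 and 11 on days 1, 3, 5 and 7, those of day 7 lower and the rest higher. The shares of all genes called in that fit are not given. The 4 comparisons share the iHSC libraries. Bst2 was at 405 (L83), 482 (L84) and 235 (L87) CPM on day 1. iHSC held 14.9 to 247 CPM (median 109, n = 12). For Bst2 the log2 change was 1.69 ± 0.44 (SE, adjusted p = 0.022). Of the 3 day 1 libraries, L83 and L84 lay above every iHSC library and L87 did not. Over all genes 2.34% were called higher. A median log2 change of 0.48 over 41 members (range -1.16 to 2.77) stood beside -0.26 over all genes tested. Without L87 the Bst2 change was 1.88 (adjusted p = 0.036), and it was again the 1 member called. The Bst2 call was lost without L83 or L84 (adjusted p 0.0865 to 0.101) and with at least 10 cells a sum, without cells high in macrophage markers and in libraries labelled bone marrow and spleen alone (adjusted p 0.05013 to 0.0696). Ifit2 (log2 change 2.77 ± 0.85 SE, adjusted p = 0.0611) and Irf7 (log2 change 1.53 ± 0.67 SE, adjusted p = 0.252) were not called. Ifit3 (log2 change 2.67 ± 1.22 SE, adjusted p = 0.269) and Isg15 (log2 change 0.76 ± 0.94 SE, adjusted p = 0.72) did not pass. Oasl2 (log2 change 0.05 ± 0.57 SE, adjusted p = 0.98) missed the threshold.

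On day 3 no member passed in edgeR, with 8 higher and none lower at an unadjusted p under 0.05 and 0 called by DESeq2 but 8 by limma voom with a library block and 1 with cells thinned to 20000 counts. Over all genes 1.12% were called. Of the 41 fitted changes 33 were above 0. The 41 members tested had log2 changes of -0.87 to 2.67, with a median of 0.58 where all genes had -0.17. Irf7 was at 168 (L79), 139.5 (L85) and 123 (L89) CPM, above the whole iHSC range of 0 to 88.2. The Irf7 change was 1.79 ± 0.66 on the log2 scale (SE, adjusted p = 0.245). Isg15 was at 153 (L79), 37.2 (L85) and 75.1 (L89) CPM, with L85 inside the iHSC range of 0 to 50.6. Isg15 had a log2 change of 2.24 ± 0.87 (SE, adjusted p = 0.288). Xaf1, a pro-apoptotic protein, had the smallest p-value. Xaf1 (log2 change 1.44 ± 0.47 SE, adjusted p = 0.145) and Bst2 (log2 change 1.25 ± 0.45 SE, adjusted p = 0.218) were not called. Usp18 (log2 change 1.85 ± 0.70 SE, adjusted p = 0.268) and Ifit3 (log2 change 2.67 ± 1.21 SE, adjusted p = 0.436) did not pass. Oasl2 (log2 change 0.47 ± 0.55 SE, adjusted p = 0.87) missed the threshold.

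On day 5 no member passed in edgeR either, with 5 higher at an unadjusted p under 0.05, 1 called by DESeq2 and 5 by limma voom with a library block. Over all genes 7.57% were called. Log2 changes of the 41 members ran from -1.74 to 1.99 (median 0.20, and -0.12 over all genes tested). Ifit2 was at 13.7 to 42.4 CPM (median 31.8, n = 7) on day 5. iHSC held 0 to 18.2 CPM (median 2.87, n = 12). The groups overlapped. Ifit2 (log2 change 1.99 ± 0.69 SE, adjusted p = 0.0696) and Usp18 (log2 change 1.45 ± 0.56 SE, adjusted p = 0.108) were not called. Oas2 (log2 change 1.71 ± 0.77 SE, adjusted p = 0.176) and Bst2 (log2 change 0.77 ± 0.35 SE, adjusted p = 0.179) did not pass. These had the smallest p-values. Irf7 (log2 change 0.79 ± 0.53 SE, adjusted p = 0.409) and Ifit3 (log2 change 1.0 ± 1.0 SE, adjusted p = 0.602) missed the threshold. Isg15 (log2 change -0.19 ± 0.73 SE, adjusted p = 0.918) and Oasl2 (log2 change -0.05 ± 0.42 SE, adjusted p = 0.97) were not called.

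On day 7 Oasl2, Ifi44, Gbp7, Mx2, Ifit1, Isg15 and Gbp3 were lower than in iHSC, 7 of 41 members beside 10.4% of all genes. Over the 41 members the median log2 change was -0.65 (range -3.25 to 0.42), beside -0.10 over all genes. Oasl2 was at 4.17 to 68.6 CPM (median 19.3, n = 10) on day 7. iHSC held 34.5 to 154 CPM (median 82.7, n = 12). For Oasl2 the log2 change was -1.45 ± 0.39 (SE, adjusted p = 0.00674). Here 6 of 10 libraries lay below every iHSC library. Ifi44 was at 0 to 40.5 CPM (median 2.8, n = 10) on day 7. The Ifi44 change was -2.5 ± 0.70 on the log2 scale (SE, adjusted p = 0.00818). Isg15 was at 0 to 13.3 CPM (median 2.07, n = 10) on day 7. iHSC held 0 to 50.6 CPM (median 12.3, n = 12). Isg15 had a log2 change of -2.28 ± 0.70 (SE, adjusted p = 0.0162). Ifit1 binds RNA that lacks the host's cap. Ifit1 was at 0 to 27.6 CPM (median 3.29, n = 10) on day 7. iHSC held 0 to 79.2 CPM (median 42.1, n = 12). For Ifit1 the log2 change was -2.47 ± 0.74 (SE, adjusted p = 0.0145). The ranges of Ifi44, Isg15 and Ifit1 overlapped those of iHSC. Gbp7 and Gbp3 are GTPases that resemble other genes of their family so closely that reads may be shared. Mx2 is a gene of a GTPase family that the GRCm38 annotation lists as a polymorphic pseudogene. The Gbp7 change was -1.11 ± 0.33 on the log2 scale (SE, adjusted p = 0.0121). Gbp3 had a log2 change of -1.55 ± 0.53 (SE, adjusted p = 0.0312). For Mx2 the log2 change was -3.25 ± 0.97 (SE, adjusted p = 0.0137). Irf7 (log2 change -0.13 ± 0.49 SE, adjusted p = 0.886) and Ifit3 (log2 change -1.17 ± 0.95 SE, adjusted p = 0.412) did not pass. Bst2 (log2 change 0.00 ± 0.32 SE, adjusted p = 0.995) missed the threshold. In libraries labelled bone marrow and spleen alone Mx2 was the 1 gene of the 7 still called, and the other 6 had adjusted p of 0.0656 to 0.312. The Mx2 call was lost without L49 (adjusted p 0.0932) and without libraries of both origins (adjusted p 0.103). The Gbp3 call was lost without L55, L58, L60, L62 or L74 (adjusted p 0.0563 to 0.0718) and with cells thinned to 20000 counts, with at least 10 cells a sum, without cells high in macrophage markers, without libraries of both origins and in libraries labelled bone marrow and spleen alone (adjusted p 0.0573 to 0.165). The other 5 held without any 1 library.

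Between successive days no member passed in edgeR. From day 1 to day 3, 0% of all genes were called, 0 members had an unadjusted p under 0.05 and DESeq2 and limma voom with a library block called 0. From day 3 to day 5 the share was also 0%, with 1 member lower at an unadjusted p under 0.05 and 0 called by either of them. From day 5 to day 7, 18 members were lower at an unadjusted p under 0.05, DESeq2 called 2 and limma voom with a library block 11. By edgeR's adjusted p 0.404% of all genes were called, and shares for the other counts are not given. Of the 41 fitted changes 39 were below 0. A median log2 change of -0.92 over 41 members (range -2.94 to 0.43) stood beside 0.01 over all genes tested. Gbp7 (log2 change -1.39 ± 0.36 SE, adjusted p = 0.0613) and Rtp4 (log2 change -1.52 ± 0.46 SE, adjusted p = 0.119) were not called. Oasl2 (log2 change -1.4 ± 0.43 SE, adjusted p = 0.131) and Igtp (log2 change -1.76 ± 0.56 SE, adjusted p = 0.148) did not pass. These were nearest to the threshold. Without the day 1 library L87, which enters the same fit, the adjusted p of Gbp7 was 0.0472 and it was called. Isg15 (log2 change -2.09 ± 0.75 SE, adjusted p = 0.222) and Bst2 (log2 change -0.77 ± 0.36 SE, adjusted p = 0.489) missed the threshold. Ifit3 (log2 change -2.17 ± 1.05 SE, adjusted p = 0.508) and Irf7 (log2 change -0.92 ± 0.56 SE, adjusted p = 0.723) were not called.

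With days 1 and 3 set against days 5 and 7, Isg15 was the 1 member called, beside 0.554% of all genes called higher. Limma voom with a library block called 5. The 41 members tested had log2 changes of -0.60 to 2.75, with a median of 0.69 where all genes had -0.13. Isg15 was at 18.6 (L83), 63.4 (L84) and 14.8 (L87) CPM on day 1. Day 3 held 153 (L79), 37.2 (L85) and 75.1 (L89) CPM. Day 5 held 0.927 to 58.9 CPM (median 10.8, n = 7). Day 7 held 0 to 13.3 CPM (median 2.07, n = 10). All 6 early libraries lay above every day 7 library, and 3 of the 6 above every day 5 library, of which L86 was the highest. The Isg15 change was 2.74 ± 0.67 on the log2 scale (SE, adjusted p = 0.0353). The Isg15 call was lost without L68, L69, L70, L71, L72, L79 or L84 (adjusted p 0.0569 to 0.107) and in libraries labelled bone marrow and spleen alone (adjusted p 0.52). Without L87 the change was 2.89 (adjusted p = 0.0248). Rsad2 (log2 change 2.04 ± 0.61 SE, adjusted p = 0.106) and Bst2 (log2 change 1.08 ± 0.34 SE, adjusted p = 0.132) did not pass. Ifit3 (log2 change 2.75 ± 0.94 SE, adjusted p = 0.169) and Irf7 (log2 change 1.33 ± 0.51 SE, adjusted p = 0.243) missed the threshold. Oasl2 (log2 change 1.01 ± 0.40 SE, adjusted p = 0.271) was not called.

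The genes with the smallest p-values from day 1 to day 3 were Xaf1, Dtx3l (a ubiquitin ligase), Oas2 and Sp100 (a nuclear body protein). Xaf1 (log2 change 1.28 ± 0.66 SE, adjusted p = 0.916) and Dtx3l (log2 change 0.94 ± 0.74 SE, adjusted p = 0.926) did not pass. Oas2 (log2 change 1.75 ± 1.39 SE, adjusted p = 0.926) and Sp100 (log2 change -0.99 ± 0.80 SE, adjusted p = 0.926) missed the threshold. The 5 genes named throughout also had no call in that step. Irf7 (log2 change 0.26 ± 0.93 SE, adjusted p = 0.993) and Isg15 (log2 change 1.48 ± 1.27 SE, adjusted p = 0.926) were not called. Ifit3 (log2 change -0.01 ± 1.74 SE, adjusted p = 1.0) and Bst2 (log2 change -0.44 ± 0.61 SE, adjusted p = 0.957) did not pass. Oasl2 (log2 change 0.41 ± 0.73 SE, adjusted p = 0.969) missed the threshold. Without L87 edgeR again called 0 members, and the log2 changes were 0.18 for Irf7, 1.18 for Isg15, 0.00 for Ifit3, -0.63 for Bst2 and 0.31 for Oasl2. From day 3 to day 5 the smallest p-values were those of Isg15, Xaf1, Rsad2 and Irf7. Isg15 (log2 change -2.43 ± 0.98 SE, adjusted p = 1.0) and Xaf1 (log2 change -0.86 ± 0.53 SE, adjusted p = 1.0) were not called. Rsad2 (log2 change -1.33 ± 0.90 SE, adjusted p = 1.0) and Irf7 (log2 change -1.0 ± 0.76 SE, adjusted p = 1.0) did not pass. Ifit3, Bst2 and Oasl2 had larger ones. Ifit3 (log2 change -1.67 ± 1.39 SE, adjusted p = 1.0) and Bst2 (log2 change -0.48 ± 0.51 SE, adjusted p = 1.0) missed the threshold. Oasl2 (log2 change -0.51 ± 0.60 SE, adjusted p = 1.0) was not called.

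Most transplanted cells were typed as tMPP1 to tMPP5, so the days were also compared with iMPP, a comparison added after the levels had been seen. Here 2 members were higher on day 1, 1 on day 3, 4 on day 5 and none on day 7, and none was lower on any day. The 4 comparisons share the iMPP libraries. Bst2 was at 20.2 to 192 CPM (median 91.2, n = 17) in iMPP. All 3 day 1 libraries lay above that range, L87 included. Bst2 had a log2 change of 1.72 ± 0.38 (SE, adjusted p = 0.0029). This call held in every fit run, but fits restricted to some cells or tissue labels were not run against iMPP. Ifit1bl1 belongs to the Ifit cluster and may share reads with its near-identical neighbours. Ifit1bl1 was at 0 (L83), 24.9 (L84) and 9.39 (L87) CPM on day 1. iMPP held 0 to 3.62 CPM (median 0, n = 17). For Ifit1bl1 the log2 change was 4.46 ± 1.36 (SE, adjusted p = 0.0356). The Ifit1bl1 call was lost without L84 or L87 (adjusted p 0.0768 to 0.227) and with DESeq2 (adjusted p 0.0887). Over all genes 3.78% were called higher on day 1. Log2 changes of the 41 members ran from -0.50 to 4.46 (median 1.11, and -0.24 over all genes tested). Without L87, 5 members were called. Sp100 (log2 change 1.66 ± 0.54 SE, adjusted p = 0.0526) and Irf7 (log2 change 1.98 ± 0.65 SE, adjusted p = 0.0554) did not pass. Isg15 (log2 change 2.33 ± 0.84 SE, adjusted p = 0.0832) and Ifit3 (log2 change 3.18 ± 1.22 SE, adjusted p = 0.108) missed the threshold. Oasl2 (log2 change 1.21 ± 0.63 SE, adjusted p = 0.251) was not called.

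On day 3 all 41 fitted changes against iMPP were above 0. Over the 41 members the median log2 change was 1.31 (range 0.10 to 4.54), beside -0.08 over all genes. Isg15 was the 1 member called, beside 0.764% of all genes called higher. Isg15 was at 153 (L79), 37.2 (L85) and 75.1 (L89) CPM on day 3. iMPP held 0 to 16.2 CPM (median 3.15, n = 17). The groups did not overlap. The Isg15 change was 3.83 ± 0.78 on the log2 scale (SE, adjusted p = 0.00599). The Isg15 call was lost without L79 (adjusted p 0.0994). Irf7 was at 168 (L79), 139.5 (L85) and 123 (L89) CPM on day 3. iMPP held 1.53 to 79.3 CPM (median 16.7, n = 17). These groups did not overlap either, but Irf7 did not pass. Irf7 (log2 change 2.25 ± 0.64 SE, adjusted p = 0.0865) and Ifit1bl1 (log2 change 4.54 ± 1.34 SE, adjusted p = 0.11) did not pass. Bst2 (log2 change 1.3 ± 0.39 SE, adjusted p = 0.113) and Ifit3 (log2 change 3.19 ± 1.21 SE, adjusted p = 0.368) missed the threshold. Oasl2 (log2 change 1.64 ± 0.60 SE, adjusted p = 0.324) was not called.

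On day 5 the GTPases Gbp7, Iigp1 and Igtp and the RNA sensor Ifih1 were higher than in iMPP, 4 of 41 members beside 1.48% of all genes. A median log2 change of 0.90 over 41 members (range -0.04 to 3.93) stood beside -0.02 over all genes tested. Gbp7 was at 86 to 314 CPM (median 125, n = 7) on day 5. iMPP held 6.43 to 155 CPM (median 43, n = 17). Gbp7 had a log2 change of 1.43 ± 0.34 (SE, adjusted p = 0.017). Igtp was at 32.7 to 339.9 CPM (median 57.5, n = 7) on day 5. iMPP held 14.7 to 71.7 CPM (median 40.1, n = 17). For Igtp the log2 change was 1.63 ± 0.45 (SE, adjusted p = 0.0391). For both, 2 of the 7 libraries lay above the iMPP range. Iigp1 was at 36.9 to 323 CPM (median 53.2, n = 7) on day 5. iMPP held 0 to 55.7 CPM (median 9.91, n = 17). The Iigp1 change was 2.88 ± 0.77 on the log2 scale (SE, adjusted p = 0.0325). Ifih1 was at 36.2 to 79.8 CPM (median 55.1, n = 7) on day 5. iMPP held 5.92 to 60.1 CPM (median 15.1, n = 17). Ifih1 had a log2 change of 1.47 ± 0.36 (SE, adjusted p = 0.0189). For these, 3 of the 7 lay above it. The Gbp7 call was lost without L66 (adjusted p 0.0928) and with cells thinned to 20000 counts and with at least 10 cells a sum (adjusted p 0.0524 to 0.0555). The Ifih1 call was lost without L68 (adjusted p 0.0577) and with cells thinned to 20000 counts and with at least 10 cells a sum (adjusted p 0.0528 to 0.0671). The Iigp1 call was lost without L66 or L86 (adjusted p 0.0583 to 0.173) and with at least 10 cells a sum (adjusted p 0.073). The Igtp call was lost without L14, L26, L28, L39, L40, L50, L52, L66 or L86 (adjusted p 0.0529 to 0.213) and with cells thinned to 20000 counts and with at least 10 cells a sum (adjusted p 0.158 to 0.191). Without L66, 1 member was called. Irf7 (log2 change 1.25 ± 0.51 SE, adjusted p = 0.222) and Isg15 (log2 change 1.39 ± 0.67 SE, adjusted p = 0.327) did not pass. Ifit3 (log2 change 1.51 ± 1.01 SE, adjusted p = 0.543) and Bst2 (log2 change 0.82 ± 0.30 SE, adjusted p = 0.15) missed the threshold. Oasl2 (log2 change 1.13 ± 0.47 SE, adjusted p = 0.228) was not called.

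On day 7 no member passed against iMPP in edgeR, with 1 higher at an unadjusted p under 0.05, 0 called by DESeq2 and 6.67% of all genes called. The 41 members tested had log2 changes of -1.08 to 0.95, with a median of -0.15 where all genes had -0.02. Ifih1 (log2 change 0.84 ± 0.33 SE, adjusted p = 0.124) and Sp100 (log2 change 0.69 ± 0.38 SE, adjusted p = 0.30) did not pass. Rsad2 (log2 change -1.02 ± 0.56 SE, adjusted p = 0.307) and Ifit2 (log2 change -1.01 ± 0.56 SE, adjusted p = 0.309) missed the threshold. These had the smallest p-values. Irf7 (log2 change 0.31 ± 0.47 SE, adjusted p = 0.777) and Isg15 (log2 change -0.73 ± 0.64 SE, adjusted p = 0.575) were not called. Ifit3 (log2 change -0.68 ± 0.97 SE, adjusted p = 0.762) and Bst2 (log2 change 0.03 ± 0.27 SE, adjusted p = 0.963) did not pass. Oasl2 (log2 change -0.30 ± 0.44 SE, adjusted p = 0.769) missed the threshold.

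**Figure D4:**
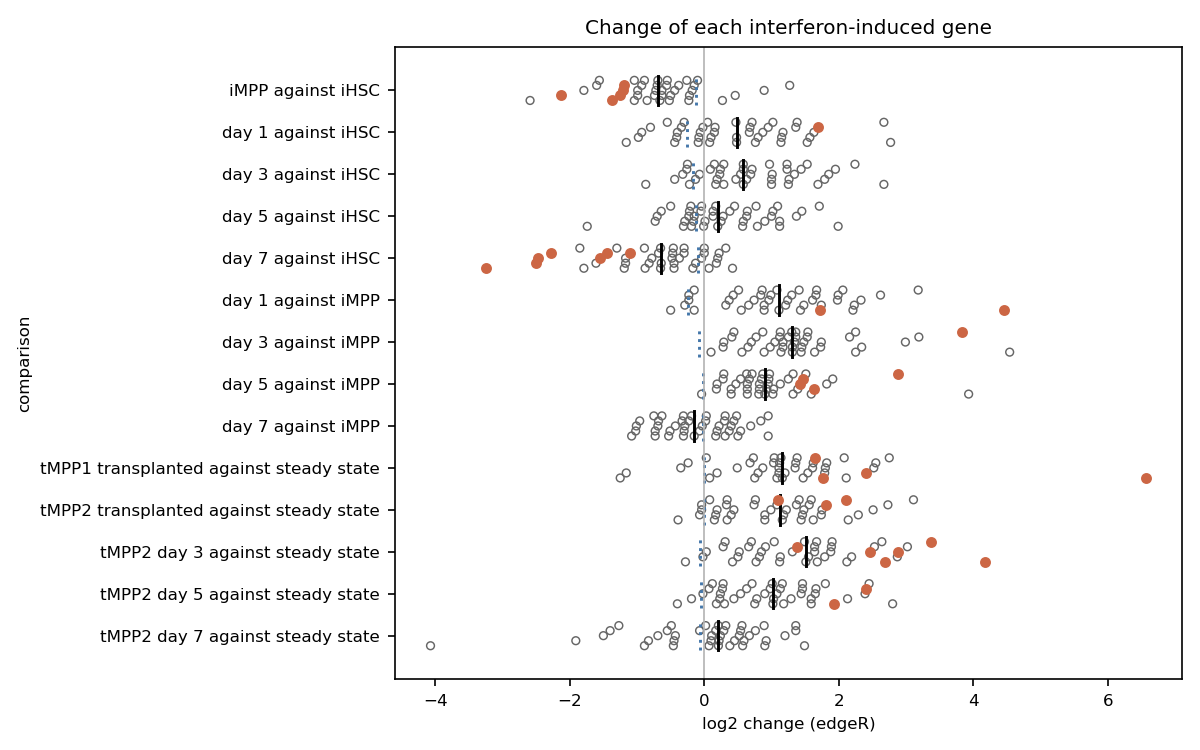
Log2 change (x axis, edgeR) of each interferon-induced gene in 14 comparisons (y axis); filled orange points passed an adjusted p of 0.05, open points did not, the black bar is the median of the members and the dotted blue bar the median of all genes tested. The members' median is 1.31 for day 3 against iMPP and -0.65 for day 7 against iHSC.

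Within cells, more of the 41 genes were detected on days 3 and 5 than in the stem cell gates, while day 1 differed between its libraries. Each cell was thinned at random to 20000 counts, so that depth was equal, and the members with a count were counted. The median per library was 5.5 to 11.5 (n = 12) in iHSC and 5 to 13 (n = 17) in iMPP. It was 11 (L83), 21 (L84) and 5 (L87) on day 1 and 21.5 (L79), 17 (L85) and 17 (L89) on day 3. It was 13 to 17 (n = 7) on day 5 and 6 to 12 (n = 10) on day 7. The day 3 and day 5 libraries lay above every iHSC library, and those of day 7 within or near its range. Genes of all kinds per thinned cell had pooled medians of 2735 in iHSC and 3401 in iMPP. The medians were 3238, 3551, 3722 and 3674 on days 1, 3, 5 and 7, so day 7 had a similar number of genes to day 5 but fewer members. Cells with 15 or more members made up 63.9% of 61 cells on day 1, 71.2% of 125 on day 3, 55.6% of 336 on day 5 and 16.2% of 389 on day 7. They made up 16.1% of 305 cells in iHSC and 7.87% of 508 in iMPP, all pooled over libraries. Without L87 the share on day 1 was 77.1% of 48. On day 3, pooled over libraries and types, cells with a count of Ifit3 held 24.8 other members on average (SD over cells 7.75, 22 cells). Cells without one held 17.6 (SD 6.08, 103 cells). Libraries and types were not held apart in these means. Isg15 had a count in 52.3% ± 14.3 (SD, n = 3) of thinned cells on day 3 and 15.5% ± 11.9 (SD, n = 7) on day 5. The share was 5.73% ± 5.44 (SD, n = 10) on day 7 and 7.07% ± 6.78 (SD, n = 12) in iHSC. For Bst2 the shares were 87.7% ± 12.5 (SD, n = 3) on day 3, 60.5% ± 17.4 (SD, n = 10) on day 7 and 42.8% ± 17.4 (SD, n = 12) in iHSC.

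**Figure D5:**
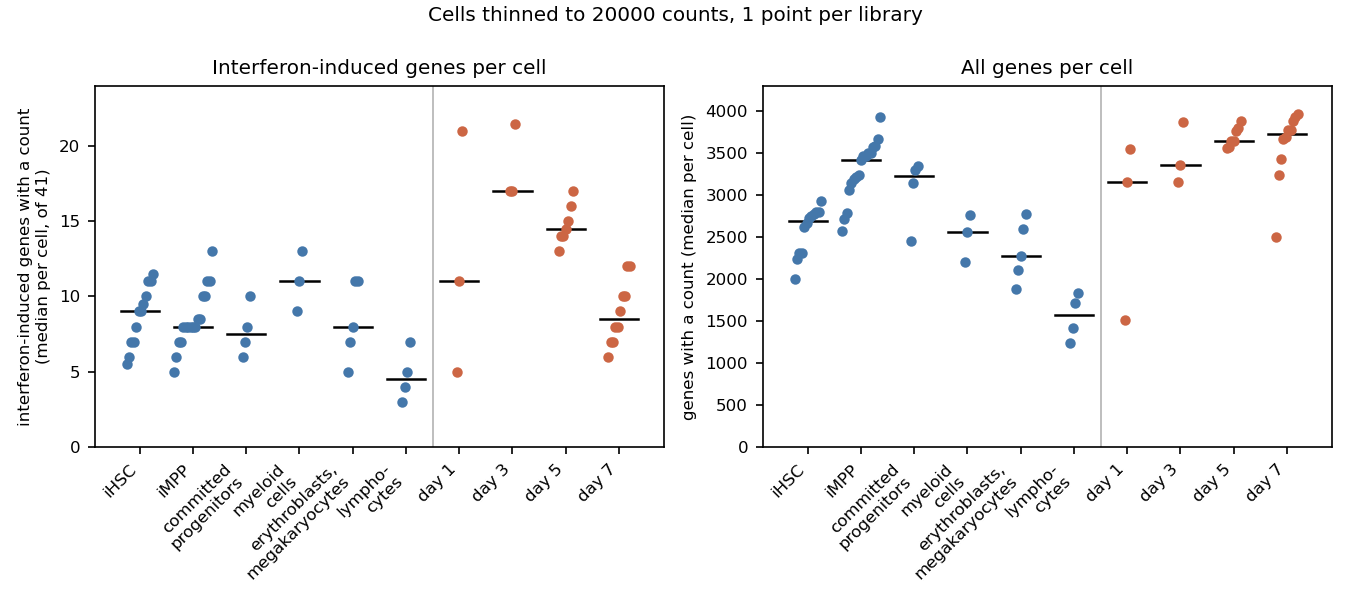
Median number per cell of interferon-induced genes with a count (left, of 41) and of all genes with a count (right), in cells thinned to 20000 counts; each point is a library, the black line the median, blue the steady state groups and orange the collection days. The left panel has day 3 between 17 and 21.5 and day 7 between 6 and 12.

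Transplanted and steady state cells of the same predicted type were then compared. The transplanted cells of a type pooled collection days, in shares that differed between types. How the types were predicted is not given in the sources used here, and the comparisons other than tMPP1 and tMPP2 were added after the levels had been seen. In tMPP1, Rtp4, Irf7, Bst2 and Ifit1bl1 were higher in transplanted cells, 4 of 41 members beside 0.271% of all genes. At an unadjusted p under 0.05, 26 were higher and 1 was lower, and the share of all genes at that threshold is not given. Log2 changes of the 41 members ran from -1.25 to 6.57 (median 1.16, and -0.01 over all genes tested). Rtp4 is a chaperone of membrane receptors. Rtp4 was at 72.7 (L37), 159 (L49), 57.3 (L50), 45.8 (L51) and 111 (L74) CPM in steady state tMPP1. Transplanted tMPP1 held 175 to 498 CPM (median 315, n = 13). For Rtp4 the log2 change was 1.77 ± 0.31 (SE, adjusted p = 0.00248). Irf7 was at 28.5 (L37), 68.4 (L49), 4.99 (L50), 6.28 (L51) and 43 (L74) CPM in steady state tMPP1. Transplanted tMPP1 held 75.8 to 284 CPM (median 159.8, n = 13). The Irf7 change was 2.41 ± 0.45 on the log2 scale (SE, adjusted p = 0.00464). For Rtp4 and Irf7 every transplanted library lay above every steady state library, and both calls held in every fit run. Bst2 was at 84.1 (L37), 161 (L49), 23.7 (L50), 114 (L51) and 100.2 (L74) CPM in steady state tMPP1. Transplanted tMPP1 held 112 to 646 CPM (median 219.5, n = 13). Bst2 had a log2 change of 1.64 ± 0.36 (SE, adjusted p = 0.0275). Here 12 of 13 transplanted libraries lay above the steady state range. The Bst2 call was lost without L37, L50, L51 or L74 (adjusted p 0.0573 to 0.0888). Ifit1bl1 was at 0 (L37), 0.892 (L49), 1.25 (L50), 0 (L51) and 0 (L74) CPM in steady state tMPP1. Transplanted tMPP1 held 0 to 126 CPM (median 17, n = 13). For Ifit1bl1 the log2 change was 6.57 ± 1.48 (SE, adjusted p = 0.030). With counts this low its size depends on the prior count. The Ifit1bl1 call was lost without L37, L51, L70, L74 or L86 (adjusted p 0.0527 to 0.0904).

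The summed level in tMPP1 was 2762 (L37), 2148 (L49), 1774 (L50), 1260 (L51) and 2020 (L74) CPM in steady state and 2722 to 9278 CPM (median 4571, n = 13) after transplantation, highest in L86. Oasl2 (log2 change 1.35 ± 0.46 SE, adjusted p = 0.222) and Isg15 (log2 change 2.52 ± 0.84 SE, adjusted p = 0.208) were not called. Ifit3 (log2 change 1.62 ± 1.1 SE, adjusted p = 0.711) did not pass. Tissue macrophage markers were at 4.99 to 123 CPM in steady state tMPP1 and 10.6 to 1235 in transplanted tMPP1, and their part in the result was not tested.

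In tMPP2, Irf7, Oasl2 and Bst2 were higher in transplanted cells, 3 of 40 members beside 0.396% of all genes. At an unadjusted p under 0.05, 20 were higher and 0 lower, and the share of all genes at that threshold is not given. Over the 40 members the median log2 change was 1.12 (range -0.39 to 3.11), beside 0.00 over all genes. Irf7 was at 2.85 to 37.5 CPM (median 14, n = 8) in steady state tMPP2. Transplanted tMPP2 held 2.41 to 198 CPM (median 53.5, n = 18). The Irf7 change was 2.1 ± 0.50 on the log2 scale (SE, adjusted p = 0.0329). Of the 18 transplanted libraries 12 lay above the steady state range and 1 below it. Oasl2 was at 0.778 to 40.5 CPM (median 18.6, n = 8) in steady state tMPP2. Transplanted tMPP2 held 9.34 to 150.1 CPM (median 68.5, n = 18). Oasl2 had a log2 change of 1.81 ± 0.44 (SE, adjusted p = 0.0399). Here 12 of the 18 lay above it. Bst2 was at 40.6 to 133 CPM (median 69.6, n = 8) in steady state tMPP2. Transplanted tMPP2 held 65.2 to 377 CPM (median 147, n = 18). For Bst2 the log2 change was 1.09 ± 0.27 (SE, adjusted p = 0.0401). For this gene 10 of the 18 lay above it and the others within it. The Irf7 call was lost without L26, L37, L38, L49, L51, L52, L79 or L84 (adjusted p 0.0528 to 0.0794) and with at least 10 cells a sum and in the limma voom fit with a library block (adjusted p 0.0517 to 0.162). The Oasl2 call was lost without L26, L38, L49, L51, L52, L68, L70, L72, L74, L79, L80, L84, L85, L86 or L89 (adjusted p 0.0528 to 0.0941) and with at least 10 cells a sum and in the limma voom fit with a library block (adjusted p 0.0595 to 0.0725). The Bst2 call was lost without L23, L26, L37, L38, L51, L52, L70, L72, L79, L80, L84, L86, L88 or L89 (adjusted p 0.0527 to 0.0984) and with cells thinned to 20000 counts and with at least 10 cells a sum (adjusted p 0.0517 to 0.0578). Oas1a (log2 change 1.44 ± 0.37 SE, adjusted p = 0.0563) and Isg15 (log2 change 2.73 ± 0.95 SE, adjusted p = 0.201) missed the threshold. Ifit3 (log2 change 3.11 ± 1.26 SE, adjusted p = 0.308) was not called. Macrophage markers were at 3.67 to 119.5 CPM in steady state and 3.85 to 1111 in transplanted tMPP2, and their part was not tested.

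In tMPP5, Iigp1, Ifit3 and Eif2ak2 were higher in transplanted cells, 3 of 40 members beside 1.15% of all genes. A median log2 change of 0.58 over 40 members (range -0.46 to 6.37) stood beside 0.03 over all genes tested. Iigp1 is a GTPase of defence within the cell. Iigp1 was at 8.24 (L16), 0 (L4), 3.26 (L40), 0 (L50) and 1.31 (L52) CPM in steady state tMPP5. Transplanted tMPP5 held 3.58 to 276 CPM (median 32.5, n = 12). The Iigp1 change was 4.41 ± 1.03 on the log2 scale (SE, adjusted p = 0.0146). Ifit3 was at 0 (L16), 0.185 (L4), 0 (L40), 0 (L50) and 0 (L52) CPM in steady state tMPP5. Transplanted tMPP5 held 0 to 24.6 CPM (median 4.85, n = 12). Ifit3 had a log2 change of 6.37 ± 1.75 (SE, adjusted p = 0.0403). Steady state Iigp1 and Ifit3 were low, so the sizes of their changes depend on the prior count. Eif2ak2 is the kinase PKR, which halts translation. Eif2ak2 was at 0.727 (L16), 7.61 (L4), 21.5 (L40), 2.95 (L50) and 2.63 (L52) CPM in steady state tMPP5. Transplanted tMPP5 held 9.82 to 113 CPM (median 31.8, n = 12). For Eif2ak2 the log2 change was 2.37 ± 0.68 (SE, adjusted p = 0.0492). Of the 12 transplanted libraries 11 lay above the steady state range for Iigp1, and 10 for Ifit3 and for Eif2ak2. The Iigp1 call was lost with at least 10 cells a sum (adjusted p 0.127). The Ifit3 call was lost without L4, L16, L40, L50, L52, L68, L69, L70, L79 or L86 (adjusted p 0.05018 to 0.107) and without the filter, with at least 10 cells a sum and in the limma voom fit with a library block (adjusted p 0.0506 to 0.312). The Eif2ak2 call was lost without L4, L16, L47, L50, L52, L59, L61, L63, L68, L70, L71, L72, L79 or L86 (adjusted p 0.0506 to 0.121) and with at least 10 cells a sum and in the limma voom fit with a library block (adjusted p 0.105 to 0.435). Ifit1 (log2 change 2.48 ± 0.90 SE, adjusted p = 0.143) and Irf7 (log2 change 0.37 ± 0.49 SE, adjusted p = 0.772) did not pass. Isg15 (log2 change 2.5 ± 1.16 SE, adjusted p = 0.287) and Bst2 (log2 change 0.18 ± 0.39 SE, adjusted p = 0.877) missed the threshold. Oasl2 (log2 change 1.23 ± 0.54 SE, adjusted p = 0.251) was not called. Macrophage markers were at 1.3 to 42.2 CPM in steady state and 6.26 to 631 in transplanted tMPP5, and their part was not tested.

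No member passed in edgeR in the other 4 types that could be compared. Limma voom called 2 in tMPP3, 1 in tMPP4, 0 in tGM1 and 0 in tME1. In tMPP3 0 of 33 members were called, with 7 higher at an unadjusted p under 0.05, 1 called by DESeq2 and 0.0951% of all genes called. The summed level of tMPP3 was 499 (L26), 496 (L39), 473 (L40) and 589 (L52) CPM in steady state. It was 495 (L58), 582 (L61), 667 (L62), 493 (L63) and 2083 (L66) CPM after transplantation, and apart from L66 the groups overlapped at low values. In tMPP4 0 of 37 were called, with 6 higher and 1 lower unadjusted, 2 called by DESeq2 and 0.129% of all genes. Its sums were 853 to 1647 CPM (median 1296, n = 8) in steady state and 2659 (L47), 2234 (L69), 1825 (L77) and 3113 (L78) CPM after transplantation, and did not overlap. In tGM1 0 of 33 were called, with 4 higher unadjusted, 0 by DESeq2 and 0.0428% of all genes. In tME1 0 of 28 were called, with 2 higher unadjusted, 0 by DESeq2 and 0.215% of all genes. The median log2 changes of the members were 0.43, 1.08, 0.63 and 0.40 in tMPP3, tMPP4, tGM1 and tME1. Over all genes they were 0.01, 0.03, 0.02 and 0.01.

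In tMPP3 the smallest p-values were those of Xaf1, Oas2 and Usp18. Xaf1 (log2 change 1.81 ± 0.45 SE, adjusted p = 0.142) and Oas2 (log2 change 6.08 ± 1.73 SE, adjusted p = 0.188) did not pass. Usp18 (log2 change 3.74 ± 1.48 SE, adjusted p = 0.349) and Irf7 (log2 change 2.6 ± 1.15 SE, adjusted p = 0.397) missed the threshold. Bst2 (log2 change 0.72 ± 0.32 SE, adjusted p = 0.407) and Oasl2 (log2 change 1.38 ± 0.89 SE, adjusted p = 0.571) were not called. In tMPP4 they were those of Iigp1, Ifi44, Rtp4 and Samd9l, a suppressor of growth and translation. Iigp1 (log2 change 3.73 ± 0.98 SE, adjusted p = 0.131) and Ifi44 (log2 change 2.1 ± 0.66 SE, adjusted p = 0.282) did not pass. Rtp4 (log2 change 1.14 ± 0.40 SE, adjusted p = 0.36) and Samd9l (log2 change -3.08 ± 1.12 SE, adjusted p = 0.36) missed the threshold. Irf7 (log2 change 1.26 ± 0.76 SE, adjusted p = 0.782) and Isg15 (log2 change 1.55 ± 1.32 SE, adjusted p = 0.877) were not called. Bst2 (log2 change 0.22 ± 0.55 SE, adjusted p = 0.983) and Oasl2 (log2 change 0.81 ± 0.75 SE, adjusted p = 0.896) did not pass. In tGM1 they included Trim30a, a ubiquitin ligase, and Xaf1. Trim30a (log2 change 1.38 ± 0.53 SE, adjusted p = 0.602) and Xaf1 (log2 change 2.45 ± 1.02 SE, adjusted p = 0.673) missed the threshold. Oasl2 (log2 change 1.72 ± 0.78 SE, adjusted p = 0.745) and Ifit3 (log2 change 3.89 ± 1.84 SE, adjusted p = 0.771) were not called. Irf7 (log2 change 0.98 ± 0.79 SE, adjusted p = 0.911) and Isg15 (log2 change -0.16 ± 1.4 SE, adjusted p = 0.992) did not pass. Bst2 (log2 change -1.0 ± 0.99 SE, adjusted p = 0.941) missed the threshold. In tME1 they were those of Isg20, Dtx3l, Parp9 and Zbp1. Isg20 (log2 change 1.94 ± 0.82 SE, adjusted p = 0.573) and Dtx3l (log2 change 2.55 ± 1.13 SE, adjusted p = 0.599) were not called. Parp9 (log2 change -2.47 ± 1.27 SE, adjusted p = 0.692) and Zbp1 (log2 change 2.0 ± 1.05 SE, adjusted p = 0.704) did not pass. Irf7 (log2 change -0.28 ± 0.89 SE, adjusted p = 0.987) and Isg15 (log2 change 0.08 ± 1.29 SE, adjusted p = 0.999) missed the threshold. Bst2 (log2 change 0.26 ± 1.28 SE, adjusted p = 0.99) and Oasl2 (log2 change 0.82 ± 0.92 SE, adjusted p = 0.927) were not called.

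Pooled over libraries, cells with 15 or more members made up 73.4% of 169 transplanted and 19% of 100 steady state cells of tMPP1. In tMPP2 they made up 40.2% of 348 and 6.21% of 145. The shares were 48.8% of 166 and 13.3% of 75 in tMPP5 and 46.4% of 56 and 2.15% of 93 in tMPP4. In tMPP3 they were 5.26% of 114 and 0% of 95. The types also differed in collection day. In the library sums, 7 of 154 transplanted tMPP1 cells and 102 of 107 transplanted tMPP3 cells came from day 7. Type and day cannot be fully told apart here, and whether the change differs between types was not tested.

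tMPP2 had at least 3 libraries on each of days 3, 5 and 7, so that the days could be compared within one predicted type. Isg15 and Rtp4 were higher on day 3 than on days 5 and 7, 2 members beside 0.298% of all genes. The 41 members tested had log2 changes of -0.48 to 4.41, with a median of 0.84 where all genes had 0.00. Isg15 was at 75.5 (L79), 53.4 (L85) and 60.8 (L89) CPM on day 3. Day 5 held 3.1 to 31.1 CPM (median 4.55, n = 6). Day 7 held 1.97 (L47), 0.767 (L60), 0 (L61), 1.45 (L63) and 0 (L78) CPM. No 2 of these days overlapped. The Isg15 change was 4.41 ± 0.68 on the log2 scale (SE, adjusted p = 0.00231). The call held in every fit run. Rtp4 was at 268 (L79), 367 (L85) and 199.5 (L89) CPM on day 3. Day 5 held 67.6 to 117 CPM (median 92.6, n = 6). Day 7 held 56.3 (L47), 3.84 (L60), 28.2 (L61), 53.3 (L63) and 68.7 (L78) CPM. Day 3 lay above all later libraries. Rtp4 had a log2 change of 2.06 ± 0.41 (SE, adjusted p = 0.0277). The Rtp4 call was lost without L68, L71, L72, L79 or L85 (adjusted p 0.051 to 0.207). The summed levels were 2752 (L79), 3435 (L85) and 2195 (L89) CPM on day 3 and 1441 to 2583 CPM (median 1821, n = 6) on day 5. They were 1705 (L47), 727 (L60), 723 (L61), 1432 (L63) and 993 (L78) CPM on day 7, and the single day 1 library had 4151 (L84) CPM. Macrophage markers in these sums were 285 (L79), 55 (L85) and 206 (L89) CPM on day 3, 3.85 to 102 on day 5 and 33.8 to 618 on day 7. Their part in the result was not tested. Irf7 (log2 change 1.71 ± 0.47 SE, adjusted p = 0.134) and Ifit1 (log2 change 2.4 ± 0.67 SE, adjusted p = 0.135) did not pass. Oasl2 (log2 change 1.28 ± 0.36 SE, adjusted p = 0.14) and Bst2 (log2 change 0.71 ± 0.26 SE, adjusted p = 0.253) missed the threshold. Ifit3 (log2 change 1.83 ± 1.08 SE, adjusted p = 0.511) was not called.

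Between neighbouring days in tMPP2 edgeR called 0 members. From day 3 to day 5, 3 were lower at an unadjusted p under 0.05, DESeq2 called 0 and 0.0176% of all genes were called. From day 5 to day 7, 12 were lower unadjusted, DESeq2 called 3 and 0.281% of all genes were called. Limma voom called 1 in the first step and 0 in the next. The median log2 change was -0.46 from day 3 to day 5 and -0.73 from day 5 to day 7, beside 0.01 and -0.01 over all genes. From day 3 to day 5 the smallest p-values were those of Isg15, Rtp4, Irf7 and Ifit1. Isg15 (log2 change -2.74 ± 0.78 SE, adjusted p = 0.468) and Rtp4 (log2 change -1.55 ± 0.47 SE, adjusted p = 0.486) did not pass. Irf7 (log2 change -1.22 ± 0.54 SE, adjusted p = 0.634) and Ifit1 (log2 change -1.61 ± 0.78 SE, adjusted p = 0.68) missed the threshold. Ifit3 (log2 change -1.22 ± 1.24 SE, adjusted p = 0.883) and Bst2 (log2 change -0.37 ± 0.29 SE, adjusted p = 0.83) were not called. Oasl2 (log2 change -0.54 ± 0.41 SE, adjusted p = 0.824) did not pass. From day 5 to day 7 they were those of Isg15, Oasl2, Oas2 and Ifit1bl1. Isg15 (log2 change -3.34 ± 0.83 SE, adjusted p = 0.0761) and Oasl2 (log2 change -1.47 ± 0.38 SE, adjusted p = 0.082) missed the threshold. Oas2 (log2 change -2.3 ± 0.63 SE, adjusted p = 0.113) and Ifit1bl1 (log2 change -6.85 ± 2.06 SE, adjusted p = 0.164) were not called. Irf7 (log2 change -0.97 ± 0.49 SE, adjusted p = 0.467) and Ifit3 (log2 change -1.23 ± 1.14 SE, adjusted p = 0.788) did not pass. Bst2 (log2 change -0.69 ± 0.25 SE, adjusted p = 0.257) missed the threshold.

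Against steady state tMPP2, a comparison added after the levels had been seen, 6 members were higher on day 3, 2 on day 5 and none on day 7. The 3 days share the steady state libraries. On day 3 these were Rtp4, Irf7, Oasl2, Bst2, Isg15 and Ifi44, beside 0.209% of all genes. For all 6 the 3 day 3 libraries lay above every steady state library. Rtp4 was at 12.9 to 82.5 CPM (median 40.1, n = 8) in steady state. For Rtp4 the log2 change was 2.68 ± 0.47 (SE, adjusted p = 0.00774). Isg15 was at 0.245 to 12.3 CPM (median 1.82, n = 8) in steady state. The Isg15 change was 4.18 ± 0.92 on the log2 scale (SE, adjusted p = 0.0322). Neither overlapped day 3. Ifi44 was at 2.46 to 19 CPM (median 8.19, n = 8) in steady state. Day 3 held 83.5 (L79), 158 (L85) and 60.1 (L89) CPM. Ifi44 had a log2 change of 3.37 ± 0.77 (SE, adjusted p = 0.0405). The other 3 were Irf7, Oasl2 and Bst2. For Irf7 the log2 change was 2.88 ± 0.57 (SE, adjusted p = 0.0145). The Oasl2 change was 2.47 ± 0.52 on the log2 scale (SE, adjusted p = 0.0245). Bst2 had a log2 change of 1.38 ± 0.30 (SE, adjusted p = 0.0321). The Rtp4 call was lost without L85 (adjusted p 0.0775). The Irf7 call was lost without L79 or L85 (adjusted p 0.0755 to 0.113). The Oasl2 call was lost without L26, L38, L79, L85 or L89 (adjusted p 0.0558 to 0.182). The Bst2 call was lost without L26, L37, L38, L79, L85 or L89 (adjusted p 0.0519 to 0.151) and with cells thinned to 20000 counts (adjusted p 0.056). The Isg15 call was lost without L26, L37, L38, L51, L79, L85 or L89 (adjusted p 0.0519 to 0.141). The Ifi44 call was lost without L26, L37, L38, L49, L68, L70, L71, L72, L74, L79, L85, L86 or L89 (adjusted p 0.05025 to 0.209) and with at least 10 cells a sum (adjusted p 0.0687). Without L85 none of the 6 was called. Ifit3 (log2 change 3.02 ± 1.53 SE, adjusted p = 0.462) was not called.

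On day 5 Oasl2 and Oas2 were higher than in steady state tMPP2, 2 members beside 0.343% of all genes. Oas2 makes the messenger that activates RNase L. Oasl2 was at 39.6 to 99.9 CPM (median 73.6, n = 6) on day 5. For Oasl2 the log2 change was 1.93 ± 0.45 (SE, adjusted p = 0.0386). Oas2 was at 9.23 to 69.2 CPM (median 48.8, n = 6) on day 5. Steady state cells held 0.489 to 19.4 CPM (median 8.54, n = 8). The Oas2 change was 2.41 ± 0.60 on the log2 scale (SE, adjusted p = 0.04977). For both genes 5 of the 6 day 5 libraries lay above the steady state range. The Oasl2 call was lost without L26, L38, L51, L68, L69, L70, L72 or L86 (adjusted p 0.0608 to 0.0862). The Oas2 call was lost without L23, L26, L37, L38, L47, L51, L52, L60, L61, L68, L69, L70, L71, L72, L74, L79, L85 or L89 (adjusted p 0.0507 to 0.126) and with RLE normalization and with at least 10 cells a sum (adjusted p 0.05007 to 0.0866). Bst2 (log2 change 1.01 ± 0.25 SE, adjusted p = 0.0521) and Ifih1 (log2 change 1.59 ± 0.40 SE, adjusted p = 0.0546) did not pass. Irf7 (log2 change 1.65 ± 0.49 SE, adjusted p = 0.103) and Isg15 (log2 change 1.44 ± 0.79 SE, adjusted p = 0.522) missed the threshold. Ifit3 (log2 change 1.8 ± 1.32 SE, adjusted p = 0.70) was not called. On day 7 edgeR called 0 members, with 4 higher at an unadjusted p under 0.05, 0 called by DESeq2, 0 by limma voom and 0.644% of all genes. Ifih1 (log2 change 1.2 ± 0.42 SE, adjusted p = 0.174) and Eif2ak2 (log2 change 1.36 ± 0.55 SE, adjusted p = 0.241) did not pass. Parp9 (log2 change 0.89 ± 0.41 SE, adjusted p = 0.325) and Oas1a (log2 change 0.92 ± 0.44 SE, adjusted p = 0.34) missed the threshold. Irf7 (log2 change 0.67 ± 0.51 SE, adjusted p = 0.614) and Isg15 (log2 change -1.91 ± 0.95 SE, adjusted p = 0.368) were not called. Ifit3 (log2 change 0.57 ± 1.39 SE, adjusted p = 0.906) and Bst2 (log2 change 0.32 ± 0.27 SE, adjusted p = 0.661) did not pass. Oasl2 (log2 change 0.45 ± 0.48 SE, adjusted p = 0.741) missed the threshold. The median log2 change of the members was 1.51 on day 3, 1.02 on day 5 and 0.21 on day 7, beside -0.07, -0.05 and -0.07 over all genes.

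Of the genes that make, sense and relay interferon, 51 were followed, among them 21 ligands. Only 6 ligands had a count in any annotated cell. Ifng had 4731 counts in 145 cells, and Ifna2, Ifnab, Ifnb1, Ifnk and Ifnz had 7 to 30 counts in 1 to 8 cells each. Ifng, a product of T and NK cells, was at 70.6 (L2), 439.5 (L3), 0 (L53) and 298 (L54) CPM in lymphocytes and had no count in any library of day 1 or day 3. Ifnar1 and Ifnar2 form the receptor of type I interferon. Ifnar1 was at 2.99 to 64.5 CPM (median 44.7, n = 12) in iHSC. Ifnar2 was at 12.5 to 215 CPM (median 84.9, n = 12) in iHSC. Neither was called on day 3. Ifnar1 (log2 change -0.82 ± 0.58 SE, adjusted p = 0.709) and Ifnar2 (log2 change 0.23 ± 0.53 SE, adjusted p = 0.954) were not called. Irf1, a transcription factor of the gamma response, was at 117 (L83), 123 (L84) and 156 (L87) CPM on day 1. Irf1 (log2 change 0.52 ± 0.56 SE, adjusted p = 0.67) did not pass.

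Against iHSC, Irf8, a factor of myeloid and dendritic cells, was the 1 of 29 pathway genes called on day 1, beside 3.14% of all genes in either direction. Irf8 was at 462 (L83), 57.6 (L84) and 95.2 (L87) CPM on day 1. Irf8 had a log2 change of 3.84 ± 0.97 (SE, adjusted p = 0.0187). Without L87 the Irf8 change was 4.14 (adjusted p = 0.0314). The Irf8 call was lost without L83 (adjusted p 0.325) and with at least 10 cells a sum, without cells high in macrophage markers and in libraries labelled bone marrow and spleen alone (adjusted p 0.0777 to 0.406). Markers of plasmacytoid dendritic cells, summed without Bst2, were at 534 (L83), 89.7 (L84) and 449 (L87) CPM on day 1 and 21.6 to 305 in iHSC. Their part was not tested. On day 5 Mb21d1 and Ikbke were called among 29 pathway genes, beside 7.57% of all genes in either direction. Mb21d1, the DNA sensor cGAS, was higher (1.93 ± 0.52 SE, adjusted p = 0.0172). Ikbke, a kinase that activates interferon factors, was lower (-2.07 ± 0.61 SE, adjusted p = 0.0297). The Mb21d1 call was lost without L66 (adjusted p 0.0655) and with at least 10 cells a sum, without cells high in macrophage markers and in libraries labelled bone marrow and spleen alone (adjusted p 0.0842 to 0.327). The Ikbke call was lost without L51, L68, L70, L71 or L72 (adjusted p 0.0547 to 0.0693) and with cells thinned to 20000 counts and in libraries labelled bone marrow and spleen alone (adjusted p 0.0835 to 0.451). On day 7, 4 of 29 were called, beside 20.8% of all genes. Ifngr2 (1.23 ± 0.43 SE, adjusted p = 0.0366) and Myd88, the adaptor of Toll-like receptors (1.45 ± 0.34 SE, adjusted p = 0.00202), were higher. Ikbke (-2.2 ± 0.54 SE, adjusted p = 0.00286) and Irf2, a repressor of the response (-1.62 ± 0.37 SE, adjusted p = 0.00171), were lower. The Ifngr2 call was lost without L1, L15, L47, L51, L55, L59, L74, L76, L79, L84, L85 or L89 (adjusted p 0.0523 to 0.147) and with RLE normalization, with at least 10 cells a sum, in tHSC and tMPP cells alone, without cells high in macrophage markers and in libraries labelled bone marrow and spleen alone (adjusted p 0.0612 to 0.293). The calls of Ikbke, Irf2 and Myd88 held in every fit run. From day 5 to day 7, 0.404% of all genes were called in either direction. In that step Ifnlr1, a chain of the interferon lambda receptor, was higher (7.15 ± 1.75 SE, adjusted p = 0.0492). These values are log2 changes, as are the next. Ifnlr1 was at 0 to 0.0524 CPM (median 0, n = 7) on day 5. Day 7 held 0 to 10 CPM (median 2.18, n = 10). With counts this low its size depends on the prior count. The Ifnlr1 call was lost without L47, L58, L59, L60, L62, L66, L68, L69, L70, L71, L72, L76, L78, L79, L81, L84, L85, L86 or L89 (adjusted p 0.0514 to 0.12) and with RLE normalization, without the filter, without cells high in macrophage markers and in libraries labelled bone marrow and spleen alone (adjusted p 0.0524 to 1.0).

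Against iMPP, Ifnlr1 (5.21 ± 1.39 SE, adjusted p = 0.0154), Jak1 (1.16 ± 0.32 SE, adjusted p = 0.0182) and Stat3 (1.35 ± 0.30 SE, adjusted p = 0.00316) were higher on day 1, beside 6.59% of all genes. All 3 calls were lost without L87, with adjusted p of 0.895 for Ifnlr1, 0.623 for Jak1 and 0.203 for Stat3. Ifnlr1 was at 0 (L83), 0.606 (L84) and 20.1 (L87) CPM on day 1. iMPP held 0 to 1.43 CPM (median 0, n = 17). Jak1 was at 159 (L83), 209 (L84) and 487 (L87) CPM on day 1. iMPP held 56.4 to 225 CPM (median 111, n = 17). Stat3 was at 173 (L83), 77.6 (L84) and 245 (L87) CPM on day 1. iMPP held 27.5 to 101 CPM (median 53.5, n = 17). L87 held the highest day 1 value of each. The Ifnlr1 call was also lost with DESeq2 (adjusted p 0.0641) and that of Stat3 with cells thinned to 20000 counts (adjusted p 0.0677). On day 7 Ifnlr1 (4.19 ± 1.12 SE, adjusted p = 0.017) and Myd88 (1.54 ± 0.25 SE, adjusted p = 0.000197) were higher than in iMPP, beside 6.67% of all genes called in either direction. The calls of Ifnlr1 and Myd88 held in every fit run. In iMPP against iHSC, Ikbke (-1.67 ± 0.55 SE, adjusted p = 0.0452) and Jak1 (-0.74 ± 0.22 SE, adjusted p = 0.0275) were lower, 2 of 26 beside 9.77% of all genes. The Ikbke call was lost without L1, L4, L14, L16, L26, L28, L37, L38, L39, L40, L50, L51, L52, L55, L76 or L81 (adjusted p 0.0537 to 0.142). The Jak1 call was lost without L26, L39, L50, L51, L52 or L81 (adjusted p 0.05006 to 0.0583). In transplanted tMPP5 Irf8 was lower (-3.86 ± 0.79 SE, adjusted p = 0.00511), beside 3.25%. The Irf8 call was lost with at least 10 cells a sum (adjusted p 0.252). No pathway gene was called in edgeR on day 3 against either steady state group.

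The committed and mature groups were compared with iHSC in the same way. The 4 comparisons share the iHSC libraries, and no pathway gene was lower in any of them. Committed progenitors had 3 of 30 pathway genes higher, Ifng, Ifngr1 and Irf8, beside 6.02% of all genes in either direction. The Ifng call was lost without L43 (adjusted p 0.0822) and with DESeq2 and in the limma voom fit with a library block (adjusted p 0.266 to 0.641). The Irf8 call was lost with at least 10 cells a sum and in the limma voom fit with a library block (adjusted p 0.0526 to 0.114). The call of Ifngr1 held in every fit run. Myeloid cells had 8 higher, beside 11.8%. They were the receptor chains Ifnar2, Ifngr1, Ifngr2 and Ifnlr1, with Irf5, Irf8, Myd88 and the phosphatase Ptpn6. For Ifnar2 the log2 change was 1.7 ± 0.53 (SE, adjusted p = 0.0254). The Ifnar2 call was lost without L4, L5, L12, L15 or L43 (adjusted p 0.05028 to 0.163). The Ifngr1 call was lost without L12 (adjusted p 0.0948). The Ifnlr1 call was lost without L43 (adjusted p 0.12). The Irf5 call was lost without L12 (adjusted p 0.0526). The Myd88 call was lost without L12 (adjusted p 0.165). The calls of Ifngr2, Irf8 and Ptpn6 held in every fit run. Erythroblasts and megakaryocytes also had 8 higher, beside 23.8%. They were Ifnar2, Ifng, Ifngr1, Ifngr2, Ifnlr1, Myd88, Pias1 and Ptpn6. The Ifnar2 change was 1.87 ± 0.45 on the log2 scale (SE, adjusted p = 0.00209). The Ifng call was lost without L42 (adjusted p 0.941) and with DESeq2 and in the limma voom fit with a library block (adjusted p 0.303 to 0.425). The Ifngr1 call was lost without L4 or L55 (adjusted p 0.0897 to 0.0993) and with cells thinned to 20000 counts and in the limma voom fit with a library block (adjusted p 0.243 to 0.422). The Myd88 call was lost without L4 (adjusted p 0.0815). The Pias1 call was lost without L1, L2, L3, L4, L5, L12, L15, L16, L49, L50, L51 or L52 (adjusted p 0.052 to 0.0928) and with cells thinned to 20000 counts, with at least 10 cells a sum and in the limma voom fit with a library block (adjusted p 0.289 to 0.869). The calls of Ifnar2, Ifngr2, Ifnlr1 and Ptpn6 held in every fit run. Without L28 the Pias1 change turned to -0.07 on the log2 scale (adjusted p = 0.956). Lymphocytes had 7 higher, beside 15.2%. They were Ifng, Ifngr1, Irf1, Irf3, Irf8, Jak1 and Ptpn6. Ifng had a log2 change of 8.97 ± 1.55 (SE, adjusted p = 8.05e-05). The Ifng call was lost with DESeq2 (adjusted p 0.0512). The Irf1 call was lost without L53 (adjusted p 0.0993). The Irf3 call was lost without L2, L3, L15, L49, L51 or L53 (adjusted p 0.0531 to 0.104) and with DESeq2, with RLE normalization and without the filter (adjusted p 0.0532 to 0.0955). The Irf8 call was lost in the limma voom fit with a library block (adjusted p 0.691). The Ptpn6 call was lost without L3 or L54 (adjusted p 0.0747 to 0.159) and in the limma voom fit with a library block (adjusted p 0.0607). The calls of Ifngr1 and Jak1 held in every fit run.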

How the data were processed

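Single cells of steady state and transplanted mice were sequenced from 3′ ends of mRNA. The authors deposited 1 table of raw counts per gene and cell, made with TopHat, HTSeq and mm10 per the submitters' processing notes; HTSeq's options, its use of strand and the versions are not given in the sources used here. Genes with near-identical copies (the Ifit, Oas1, Gbp and Iigp1 families) may share or lose reads. The table held 23154 genes, and annotated cells 20013 to 1943315 counts. Groups and days came from the labels and the cell annotation; the 578 cells without annotation were not analysed here.

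Counts were summed per library and group over at least 5 cells, and levels are CPM of those sums. Groups were compared with edgeR 4.0.16 in R 4.3.3 (filterByExpr, TMM, quasi-likelihood test, two-sided), with Benjamini-Hochberg adjustment over all genes tested and a threshold of 0.05. Alternatives were DESeq2 1.42.0, RLE normalization, no filter, cells thinned to 20000 counts, at least 10 cells a sum, limma 3.58.1 voom with a library block, restricted cells or tissues, and each library left out. Restricted cells or tissues were used only for the days against iHSC and against each other. The fits were tested on simulated data.

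Genes named in full are Irf7, Isg15, Ifit3, Bst2 and Oasl2 in every comparison, every member called (up to 12), the 4 with the smallest p where fewer than 4 were called, and the 6 highest by level; of the pathway, those called and Ifnar1, Ifnar2 and Irf1. A further pathway gene is not reported here. The members and lists were chosen with earlier results of these data known. No labels name the animals behind a library, so p-values cover the spread between libraries, and the spread between animals is not known. Promoters came from a RefSeq table of GRCm38.p6.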

Additional observations from a re-analysis of the deposited data

Results flagged for a closer look

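In 15 cases 1 library stood far from the others of its group of 4 to 10 libraries. The 50 sets of values examined share groups and cells, so they are not independent. In independent sets chance would set apart about 1 in 20.

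L86 of day 5 stood above the other libraries of its day in several values. Its summed level was 4794 CPM, with the next at 2802. Its Isg15 was 58.88 CPM, its Ifit3 56.44 CPM and its Bst2 382.3 CPM, with the next libraries at 16.4, 13.9 and 175 CPM. Within predicted types its summed level was 9278 CPM in tMPP1 and 4023 CPM in tMPP5, with the next at 4844 and 2339 CPM. L86 is also the 1 day 5 library numbered among those of days 1 and 3.

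On day 7, L78 had the highest Isg15 (13.3 CPM, the next at 4.03) and Ifit3 (11.21 CPM, the next at 4.09). In transplanted tGM1, L88 had a summed level of 6950 CPM, with the next at 2170. In transplanted tMPP3, L66 had 2083 CPM, with the next at 667.

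In committed progenitors L43 had 257.3 CPM of Irf7 and 34.69 CPM of Ifit3, with the next libraries at 39.2 and 0.276 CPM. Among erythroblasts and megakaryocytes L55 had 54.02 CPM of Ifit3 and L4 had 97.55 CPM of Bst2. In lymphocytes L54 had 16.4 CPM of Oasl2.

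In the libraries that pooled days and entered no comparison by day, L88 (days 1 and 3) had a summed level of 4900 CPM, above the highest iHSC library at 2747 CPM.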

How the results depend on the processing

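The named genes' log2 changes were first counted under the alternatives other than leaving out 1 library in turn. Of these, 1635 kept their direction and side of the threshold, 91 lost the call, 97 gained one and 46 changed sign. With 1 library left out these counts were 6993, 324, 50 and 76. Some of the first alternatives also drop libraries. Among them are at least 10 cells a sum, no libraries of both origins, and libraries labelled bone marrow and spleen alone. The cause of a change was not tested. The share of all genes called under each alternative is not given. The summed level without its 5 highest members was 2496 CPM on day 3, against 3528, and 1483 CPM in iHSC, against 2014. The biological coefficient of variation between libraries was 0.661 to 1.127. The number of members called with DESeq2 was 2 (day 1 v iHSC, 1), 1 (day 5 v iHSC, 0), 12 (day 7 v iHSC, 7), 2 (day 7 v day 5, 0), 2 (days 1 and 3 v days 5 and 7, 1), 6 (day 1 v iMPP, 2), 9 (iMPP v iHSC, 5), 4 (committed progenitors v iHSC, 1), 4 (myeloid cells v iHSC, 2), 11 (tMPP1 transplanted, 4), 12 (tMPP2 transplanted, 3), 1 (tMPP3 transplanted, 0), 2 (tMPP4 transplanted, 0), 3 (tMPP2 day 7 v day 5, 0), 5 (tMPP2 day 3 v days 5 and 7, 2) and 8 (tMPP2 day 5 v steady state, 2), with the number in the main test last in each bracket. With RLE normalization it was 2 (day 1 v iHSC, 1), 1 (day 7 v day 5, 0), 8 (day 1 v iMPP, 2) and 1 (tMPP2 day 5 v steady state, 2). Without the filter it was 2 (day 1 v iHSC, 1), 2 (days 1 and 3 v days 5 and 7, 1), 6 (day 1 v iMPP, 2), 6 (day 3 v iMPP, 1), 5 (tMPP2 transplanted, 3), 1 (tMPP4 transplanted, 0), 1 (tGM1 transplanted, 0), 1 (tMPP2 day 5 v day 3, 0), 4 (tMPP2 day 7 v day 5, 0), 7 (tMPP2 day 3 v days 5 and 7, 2) and 9 (tMPP2 day 5 v steady state, 2). With cells thinned to 20000 counts it was 2 (day 1 v iHSC, 1), 1 (day 3 v iHSC, 0), 13 (day 1 v iMPP, 2), 5 (day 3 v iMPP, 1), 1 (day 7 v iMPP, 0), 3 (iMPP v iHSC, 5), 2 (committed progenitors v iHSC, 1), 8 (myeloid cells v iHSC, 2), 5 (tMPP2 transplanted, 3), 1 (tMPP5 transplanted, 3), 1 (tMPP2 day 7 v day 5, 0) and 8 (tMPP2 day 5 v steady state, 2). With at least 10 cells a sum it was 0 (day 1 v iHSC, 1), 6 (day 1 v iMPP, 2), 4 (day 3 v iMPP, 1), 1 (day 7 v iMPP, 0), 2 (committed progenitors v iHSC, 1), 1 (tMPP2 transplanted, 3), 0 (tMPP5 transplanted, 3) and 5 (tME1 transplanted, 0). In libraries labelled bone marrow and spleen alone it was 0 (day 1 v iHSC, 1), 1 (day 7 v iHSC, 7) and 0 (days 1 and 3 v days 5 and 7, 1). In limma voom with a library block it was 8 (day 3 v iHSC, 0), 5 (day 5 v iHSC, 0), 11 (day 7 v iHSC, 7), 11 (day 7 v day 5, 0), 5 (days 1 and 3 v days 5 and 7, 1), 5 (committed progenitors v iHSC, 1), 7 (myeloid cells v iHSC, 2), 5 (lymphocytes v iHSC, 3), 8 (tMPP1 transplanted, 4), 1 (tMPP2 transplanted, 3), 2 (tMPP3 transplanted, 0), 1 (tMPP4 transplanted, 0), 1 (tMPP5 transplanted, 3), 1 (tMPP2 day 5 v day 3, 0), 4 (tMPP2 day 3 v days 5 and 7, 2) and 10 (tMPP2 day 5 v steady state, 2). In tHSC and tMPP cells alone it was 12 (day 7 v iHSC, 7). With 1 library left out in turn, the number called ranged from 0 to 2 (day 1 v iHSC), from 0 to 1 (day 5 v iHSC), from 6 to 11 (day 7 v iHSC), from 0 to 1 (day 7 v day 5), from 0 to 1 (days 1 and 3 v days 5 and 7), from 2 to 6 (day 1 v iMPP), from 0 to 3 (day 3 v iMPP), from 1 to 5 (day 5 v iMPP), from 3 to 7 (iMPP v iHSC), from 1 to 2 (committed progenitors v iHSC), from 0 to 3 (myeloid cells v iHSC), from 2 to 5 (tMPP1 transplanted), from 0 to 6 (tMPP2 transplanted), from 0 to 1 (tMPP3 transplanted), from 1 to 3 (tMPP5 transplanted), from 1 to 2 (tMPP2 day 3 v days 5 and 7), from 0 to 6 (tMPP2 day 3 v steady state) and from 0 to 5 (tMPP2 day 5 v steady state).

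Log2 changes that changed sign are given with the comparison and the main value in brackets. Without cells high in macrophage markers these were -0.56 for Oasl2 (day 1 v iHSC, 0.05), -0.27 for Irf1 (day 1 v iHSC, 0.52), -0.02 for Bst2 (day 7 v iHSC, 0) and 0.58 for Ifit3 (day 3 v day 1, -0.01). Without libraries of both origins these were -0.1 for Oasl2 (day 1 v iHSC, 0.05). With cells thinned to 20000 counts these were 0.21 for Isg15 (day 5 v iHSC, -0.19), 0.16 for Oasl2 (day 5 v iHSC, -0.05), 0.22 for Irf7 (day 7 v iHSC, -0.13), 0.09 for Ifit3 (day 3 v day 1, -0.01), 0.18 for Rsad2 (day 7 v iMPP, -1.02), 0.68 for Ifit3 (day 7 v iMPP, -0.68) and 1.1 for Isg15 (tMPP2 day 7 v steady state, -1.91). In limma voom with a library block these were 0.08 for Isg15 (day 5 v iHSC, -0.19), 0.01 for Oasl2 (day 5 v iHSC, -0.05), 0.33 for Ifit3 (day 7 v iHSC, -1.17), 1.23 for Ifit3 (day 3 v day 1, -0.01), -0.41 for Irf7 (committed progenitors v iHSC, 1.23), -1.33 for Ifit3 (committed progenitors v iHSC, 0.45), -0.14 for Trim30a (erythroblasts and megakaryocytes v iHSC, 1.52), -1.26 for Ifit3 (tGM1 transplanted, 3.89), -0.9 for Isg15 (tME1 transplanted, 0.08), -1.25 for Bst2 (tME1 transplanted, 0.26) and -0.4 for Oasl2 (tME1 transplanted, 0.82). In libraries labelled bone marrow and spleen alone these were 1.91 for Isg15 (day 5 v iHSC, -0.19), 0.64 for Oasl2 (day 5 v iHSC, -0.05), 0.21 for Irf7 (day 7 v iHSC, -0.13) and 0 for Ifit3 (day 3 v day 1, -0.01). With at least 10 cells a sum these were 0.16 for Oasl2 (day 5 v iHSC, -0.05), -0.13 for Irf7 (day 3 v day 1, 0.26), 0.14 for Oasl2 (day 7 v iMPP, -0.3), -0.72 for Irf7 (committed progenitors v iHSC, 1.23), -6.96 for Ifit3 (committed progenitors v iHSC, 0.45), -0.01 for Usp18 (tMPP3 transplanted, 3.74), -0.5 for Oasl2 (tMPP3 transplanted, 1.38), -0.33 for Oasl2 (tMPP4 transplanted, 0.81), -0.92 for Ifit3 (tGM1 transplanted, 3.89), -0.23 for Isg20 (tME1 transplanted, 1.94), 0.81 for Parp9 (tME1 transplanted, -2.47) and 1.7 for Irf7 (tME1 transplanted, -0.28). With DESeq2 these were -0.22 for Bst2 (day 7 v iHSC, 0) and -0.01 for Bst2 (day 7 v iMPP, 0.03). With RLE normalization these were -0.22 for Bst2 (day 7 v iHSC, 0) and -0.01 for Bst2 (day 7 v iMPP, 0.03). Without the filter these were -0.02 for Bst2 (day 7 v iHSC, 0), 0.03 for Ifit3 (day 3 v day 1, -0.01) and -0.02 for Isg15 (tME1 transplanted, 0.08). With 1 library left out, log2 changes that changed sign ranged from -0.19 to 1.09 for Isg15 (day 1 v iHSC), from -0.24 to 0.19 for Oasl2 (day 1 v iHSC), from -1.05 to 0.14 for Isg15 (day 5 v iHSC), from -0.36 to 0.09 for Oasl2 (day 5 v iHSC), from -0.57 to 0.04 for Irf7 (day 7 v iHSC), from -0.13 to 0.18 for Bst2 (day 7 v iHSC), from -0.16 to 0.94 for Irf7 (day 3 v day 1) and from -1.33 to 0.99 for Ifit3 (day 3 v day 1). Further ranges were from -0.13 to 0.46 for Irf7 (day 7 v iMPP), from -1.27 to 0.28 for Ifit3 (day 7 v iMPP), from -0.1 to 0.17 for Bst2 (day 7 v iMPP), from -0.67 to 0.14 for Ifit3 (iMPP v iHSC), from -0.22 to 0.1 for Bst2 (iMPP v iHSC), from -0.5 to 1.57 for Irf7 (committed progenitors v iHSC), from -6.53 to 1.1 for Ifit3 (committed progenitors v iHSC) and from -0.57 to 1.14 for Oasl2 (myeloid cells v iHSC). Further ranges were from -0.25 to 2.16 for Ifit3 (erythroblasts and megakaryocytes v iHSC), from -0.07 to 2.04 for Pias1 (erythroblasts and megakaryocytes v iHSC), from -0.4 to 1.2 for Isg15 (lymphocytes v iHSC), from -0.43 to 0.08 for Bst2 (lymphocytes v iHSC), from -0.01 to 0.56 for Bst2 (tMPP4 transplanted), from -0.04 to 0.56 for Bst2 (tMPP5 transplanted), from -1.51 to 4.61 for Ifit3 (tGM1 transplanted) and from -1.6 to 0.22 for Isg15 (tGM1 transplanted). Further ranges were from -1.72 to 0.08 for Irf7 (tME1 transplanted), from -1.87 to 0.62 for Isg15 (tME1 transplanted), from -2.66 to 1.04 for Bst2 (tME1 transplanted), from -0.99 to 1.35 for Oasl2 (tME1 transplanted), from -1.69 to 0.46 for Ifit3 (tMPP2 day 5 v day 3) and from -0.28 to 2.62 for Ifit3 (tMPP2 day 7 v steady state). The voom fit with a library as a block could not be fitted for the days against iMPP. In the tMPP types each library gave 1 sum, so the block has no effect there.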

Other observations

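The libraries that pooled collection days gave the following values. L80 (days 1 and 3, 28 cells) had a summed level of 2442 CPM and L88 (days 1 and 3, 54 cells) 4900 CPM, while L77 (days 5 and 7, 38 cells) had 1787 CPM. Cells thinned to 20000 counts held a median of 14 members in L80, 16.5 in L88 and 8 in L77. The share of thinned cells with 15 or more members was 46.4% in L80, 61.1% in L88 and 10.5% in L77. Neutrophil markers were at 4031, 55910 and 7579 CPM in L80, L88 and L77, and stem cell markers at 496, 326 and 129 CPM.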
